A study of Mus musculus with 24 samples.

Results

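Microglia (MG) isolated directly from the adult mouse brain were compared with microglia-like cells (MG-LCs) grown from whole brain suspensions, using the raw gene counts of 6 of the 24 libraries in the series. The 3 MG libraries came from CD45low CD11b+ cells that were sorted by flow cytometry from brains of female C57BL/6J mice aged 8 to 12 weeks, without culture or treatment. The 3 MG-LC libraries came from the same strain, sex and age. Here the unsorted cell suspension of 3 pooled brains was plated in a flask coated with polyethylenimine and kept for 2 weeks at the low oxygen of brain tissue, in serum-containing high-glucose medium with macrophage colony-stimulating factor (M-CSF) and interleukin (IL)-34, with 1 partial medium change. No sort followed the culture, so any cell that survived in the flask and came off with trypsin contributed RNA. Sorting, culture time, medium and detachment all differ between the groups and cannot be told apart. The cells are referred to as ex vivo (MG 1 to 3) and in vitro (MG-LC 1 to 3).

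Microglia are the resident macrophages of the brain parenchyma. They arise from yolk sac progenitors, renew themselves locally and depend on the receptor Csf1r, whose ligands are M-CSF and IL-34. Transforming growth factor beta (TGF-beta) and other signals of the brain keep up the homeostatic signature by which the cells are recognised. Injury, neurodegeneration and removal from the brain are known to change it.

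The cells were first checked against 3 defining microglial genes. P2ry12, a receptor for adenosine diphosphate that directs process movement (chr3:59216272-59262871 on GRCm38, minus strand), was counted at 6000.0, 6345 and 6083 CPM ex vivo and 2.90, 13.4 and 21.5 CPM in vitro, where CPM is the read count scaled to library size after normalization between libraries. Sall1, a transcription factor of microglial identity (chr8:89027235-89044162, minus strand), stood at 757, 731 and 831 CPM ex vivo and 1.59, 1.74 and 23.6 CPM in vitro. Tmem119, a microglial membrane protein (chr5:113793729-113800516, minus strand), stood at 4802, 5141 and 4741 CPM ex vivo and 70.6, 1.23 and 10.4 CPM in vitro. The lowest ex vivo library lay far above the highest in vitro library for each gene. The defining markers were therefore present in the sorted cells and close to absent in the cultured cells, and the name MG-LCs is used here as the label of the culture and not as a statement on identity. In such bulk samples fewer cells of a type and less RNA per cell cannot be told apart.

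Depth was similar across the 6 libraries, with 30927810 to 39376938 reads assigned to genes and 17923 to 19220 genes with at least 1 read, so that 3 reads corresponded to 0.0736 to 0.0977 CPM. The 3 MG libraries lay close together, whereas the 3 MG-LC libraries differed among themselves. The median SD of log2 CPM per gene was 0.15 ex vivo and 0.55 in vitro. MG-LC 1 stood apart through genes of fibroblasts. The summed level of 16 fibroblast markers was 47.2, 39.3 and 43.6 CPM ex vivo and 37380.0, 29.6 and 1349 CPM in vitro, and 7 to 9 of the 16 were at 0 in each MG library. MG-LC 1 is therefore followed throughout, and values without it are given beside many of the results that turn on it.

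Sorted and cultured microglia differed in a large share of their genes. Of 14416 genes with enough reads to test, 6696 (46.4%) passed the threshold of an adjusted p under 0.05 in edgeR's quasi-likelihood test. Of these, 3063 genes (21.2%) were higher ex vivo and 3633 (25.2%) were higher in vitro. With an absolute log2 fold change above 1.5 added, 1941 (13.5%) were higher ex vivo and 2362 (16.4%) in vitro. The median log2 fold change over all genes tested was -0.03, where positive values stand for higher levels ex vivo. These shares are the background for every list below that is counted over all 6 libraries.

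The number of calls rested on the libraries used. Leaving out MG 1, 2 or 3 brought it down to 2928, 3053 and 3062 genes. Leaving out MG-LC 1, 2 or 3 gave 8180, 6854 and 7681 genes. Without MG-LC 1, 2928 of the 3063 genes higher ex vivo and 3482 of the 3633 genes higher in vitro were still called, and 0 genes called in all 6 libraries turned their sign. The shares called without it were 25.8% and 28.9%.

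The kinds of genes differed between the directions. Of 12352 protein-coding genes, 19.1% were higher ex vivo and 27.4% in vitro. Of 1101 long non-coding RNA genes, 38.1% were higher ex vivo and 7.81% in vitro, and of 420 pseudogenes 16.2% and 33.6%. Whether the counting separates non-coding genes from overlapping genes, or pseudogenes from their parent genes, was not tested.

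A small set of genes was close to on or off. There were 123 genes under 1 CPM in each MG library and at 10 CPM or more in each MG-LC library, of which 8 had no read ex vivo, among them the lysosomal channel Mcoln2 (57.5, 75.5 and 51.2 CPM in vitro, at least 756-fold higher when 3 reads per library stand in for the 0) and Ms4a14 (11.7, 25.1 and 25.4 CPM, at least 255-fold higher). In the other direction, 41 genes were under 1 CPM in each MG-LC library. Only 3 of them had no read in vitro, namely the adenylate cyclase gene Adcy8, 6030468B19Rik and Gm42944, which are named here after their values were seen.

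**Figure D1:**
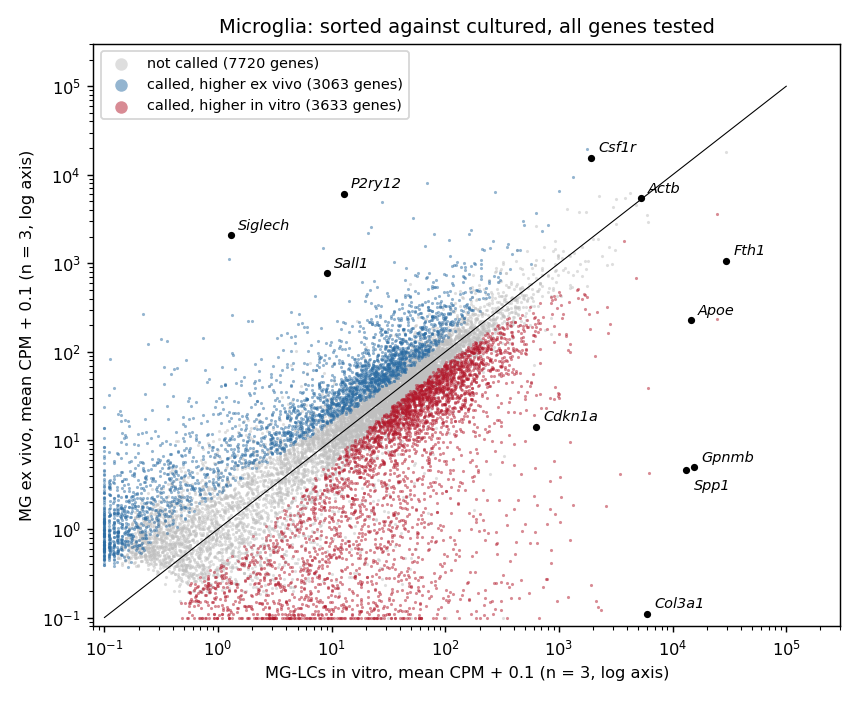
Mean level of each of the 14416 genes tested in MG-LCs (horizontal axis) and in MG (vertical axis), as CPM + 0.1 on log axes, n = 3 libraries each. Coloured points are the 3063 genes called higher ex vivo and the 3633 called higher in vitro, and both clouds spread over the whole range of levels.

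The 12 genes with the widest gap between the groups ex vivo were Siglech, Slc2a5, P2ry12, Crybb1, Adgrg1, Upk1b, Asb2, Gpr165, BC035044, P2ry13, Mlxipl and Col27a1. Siglech, a sialic acid-binding receptor of microglia (chr7:55768178-55778925, plus strand), was at 2148, 2016 and 2084 CPM ex vivo and 0, 0.0285 and 3.58 CPM in vitro (log2 fold change 10.77, SE 2.23, adjusted p = 0.0111). The fructose transporter gene Slc2a5 was at 1116, 1135 and 1073 CPM ex vivo and 0.269, 0.599 and 2.57 CPM in vitro (log2 fold change 9.92, SE 1.06, adjusted p = 0.00172). Mlxipl, a glucose-responsive transcription factor, was at 218, 250.5 and 316 CPM ex vivo and 0, 1.54 and 2.12 CPM in vitro (log2 fold change 7.74, SE 1.33, adjusted p = 0.00628). For each of these every culture was far below every sorted library, the lowest being MG-LC 1.

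Col27a1, a fibrillar collagen gene, ran against the other collagens: it was at 144, 143 and 144 CPM ex vivo and 0.0299, 0.827 and 1.07 CPM in vitro (log2 fold change 7.80, SE 0.96, adjusted p = 0.00242). Upk1b, a tetraspanin gene, was at 129.6, 139 and 147 CPM ex vivo and 0, 0.0856 and 0.553 CPM in vitro. Gpr165, an orphan receptor gene, was at 134, 121 and 109 CPM ex vivo and 0, 0 and 0.423 CPM in vitro. Neither reached 1 CPM in any culture. The genes with the most reads among those higher ex vivo included Cst3, Csf1r, Cx3cr1, Serinc3 and Selplg.

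The homeostatic signature of microglia was lower in vitro as a group, but not in every member. Of 54 homeostatic genes tested, 34 were higher ex vivo and 0 in vitro, against 21.2% and 25.2% of all genes, with a median log2 fold change of 2.55. Receptors and other surface proteins differed most, with 17 of 20 higher ex vivo and a median of 4.65. Secreted proteins and enzymes followed with 12 of 20 and a median of 2.46. Of 14 transcription factors, 5 were higher ex vivo, and the median was 1.57. The whole list gave 21 each without MG 1, 2 or 3 and 39, 31 and 34 without MG-LC 1, 2 or 3.

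P2ry13, Cx3cr1 and Gpr34, receptors for a nucleotide, a chemokine and a lysolipid, were far lower in vitro. P2ry13, a second adenosine diphosphate receptor, was at 2461, 2580.4 and 2701 CPM ex vivo and 5.72, 33.4 and 26.8 CPM in vitro (log2 fold change 6.88, SE 0.80, adjusted p = 0.00213). Cx3cr1, the receptor for the neuronal chemokine fractalkine, was at 8366, 9407 and 6204 CPM ex vivo and 8.98, 128 and 69.4 CPM in vitro (log2 fold change 6.86, SE 1.14, adjusted p = 0.00571). Gpr34, a receptor for lysophosphatidylserine, was at 2064, 2209.6 and 2095 CPM ex vivo and 6.44, 56.4 and 176 CPM in vitro (log2 fold change 4.74, SE 1.15, adjusted p = 0.0184). The 3 cultures were not alike, with MG-LC 1 lowest for each of these genes, yet no culture came near a sorted library.

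Csf1r, the receptor that both supplied growth factors bind, was lower in vitro, at 16178, 15836 and 14540.0 CPM ex vivo and 733, 2489.7 and 2566 CPM in vitro (log2 fold change 3.01, SE 0.70, adjusted p = 0.0160). It kept 12.4% of the mean ex vivo level. Fcrls, an Fc receptor-like gene that marks microglia, kept 17.1% with 3864, 3679 and 3473 CPM ex vivo and 246, 463 and 1171 CPM in vitro (log2 fold change 2.55, SE 0.64, adjusted p = 0.0200). Itgb5, an integrin subunit, was at 3045, 3108 and 2943 CPM ex vivo and 325, 565 and 549 CPM in vitro (log2 fold change 2.66, SE 0.36, adjusted p = 0.00331). Fcrls in MG-LC 3 was the highest of the 3 cultures and still below the sorted libraries.

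Trem2, Tyrobp and Itgam did not pass the test. Trem2, a lipid-sensing receptor whose variants are linked to Alzheimer's disease, was at 1267, 1312 and 1305 CPM ex vivo and 453, 1716 and 1884 CPM in vitro (log2 fold change -0.06, SE 0.54, adjusted p = 0.930). Its adaptor gene Tyrobp was at 705, 747 and 724 CPM ex vivo and 606, 2087 and 2073 CPM in vitro (log2 fold change -1.13, SE 0.50, adjusted p = 0.109). For both genes MG-LC 1 lay below and the other two cultures above the sorted libraries. Without MG-LC 1, both were called higher in vitro (log2 fold change -0.49, adjusted p = 0.0262 for Trem2 and -1.53, adjusted p = 0.000510 for Tyrobp). Itgam, which encodes CD11b, was at 1956, 1713 and 1699.8 CPM ex vivo and 455, 1086 and 1241 CPM in vitro and without MG-LC 1 was called higher ex vivo (log2 fold change 0.61, adjusted p = 0.0215).

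The homeostatic transcription factors higher ex vivo were Sall1, Sall3, Mef2a, Smad3 and Tal1. Sall3, a paralog of Sall1, was at 177, 190.4 and 201 CPM ex vivo and 0.778, 3.37 and 13.7 CPM in vitro (log2 fold change 4.99, SE 1.03, adjusted p = 0.0109). Smad3, which carries TGF-beta signals, was at 142, 161 and 157 CPM ex vivo and 43.8, 8.90 and 28.2 CPM in vitro (log2 fold change 2.51, SE 0.55, adjusted p = 0.0135). Mef2a, a microglial enhancer factor, was at 759, 650.0 and 725 CPM ex vivo and 81.9, 337 and 195 CPM in vitro (log2 fold change 1.80, SE 0.51, adjusted p = 0.0298). The highest culture stayed below the lowest sorted library for each of them.

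Spi1 and Irf8 were among the 9 of 14 factors that were not called. Spi1, which encodes the myeloid master regulator PU.1, was at 404, 449 and 438 CPM ex vivo and 127, 457 and 333 CPM in vitro (log2 fold change 0.49, SE 0.45, adjusted p = 0.396), with overlapping groups. Irf8, a regulator of microglial development, was at 750.0, 835 and 853 CPM ex vivo and 96.9, 359 and 459 CPM in vitro without overlap, but passed the test only when MG-LC 1 was left out (log2 fold change 0.98, adjusted p = 0.00558). For 12 of the 14 factors the lowest culture was MG-LC 1, and the number higher ex vivo was 2 each without MG 1, 2 or 3 and 9, 6 and 3 without MG-LC 1, 2 or 3.

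Among secreted and lysosomal products of resting microglia, 12 were lower in vitro and 8 were not called. Cst3, the protease inhibitor cystatin C, was at 19530.0, 20131 and 19407 CPM ex vivo and 769, 1792 and 2680.4 CPM in vitro (log2 fold change 3.49, SE 0.72, adjusted p = 0.0110). Olfml3, a secreted glycoprotein, was at 3263, 3372 and 3025 CPM ex vivo and 84.5, 31.1 and 41.1 CPM in vitro (log2 fold change 5.95, SE 0.55, adjusted p = 0.00116). The 3 complement C1q chains were not called. C1qb was at 5693, 6482 and 6306 CPM ex vivo and 1923, 3962 and 6801 CPM in vitro (log2 fold change 0.54, SE 0.57, adjusted p = 0.459). C1qa was at 3611, 4088 and 3648 CPM ex vivo and 706, 873 and 2877 CPM in vitro (log2 fold change 1.35, SE 0.62, adjusted p = 0.118). Each of the 3 chains was lowest in MG-LC 1.

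Sparc, an extracellular matrix protein made by both microglia and fibroblasts, rested on 1 library. It was counted at 4109, 4129 and 4056 CPM ex vivo and 3323, 3.79 and 211 CPM in vitro (log2 fold change 1.80, SE 1.77, adjusted p = 0.426). The level in MG-LC 1 lay near the sorted cells, while the other two cultures were far below. Without MG-LC 1, Sparc was called higher ex vivo (log2 fold change 5.23, adjusted p = 0.0402).

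**Figure D2:**
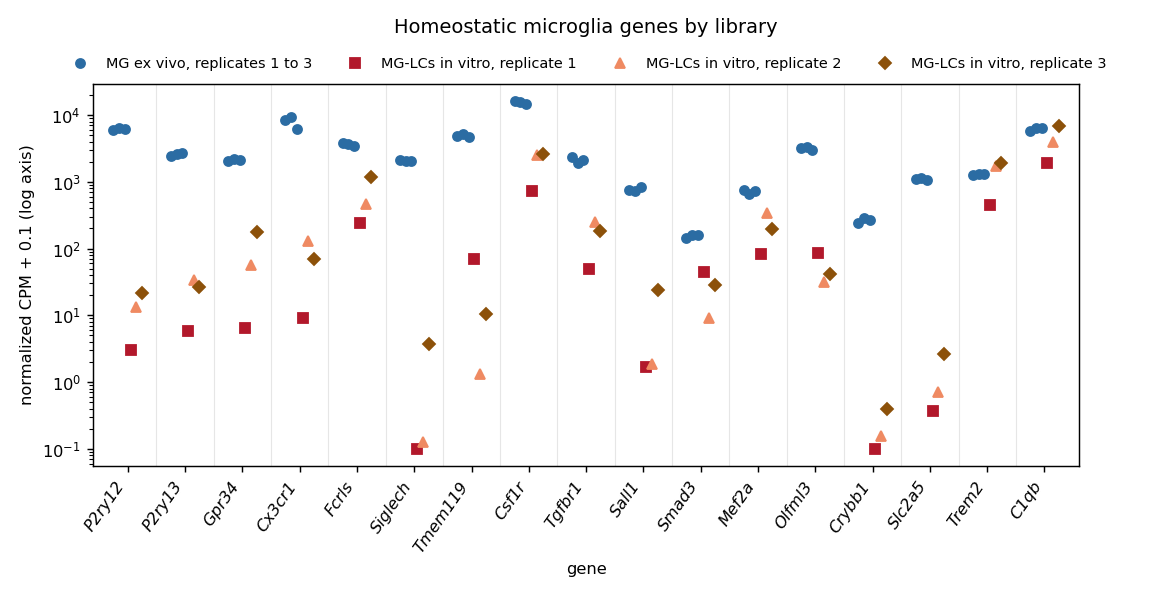
Homeostatic microglial genes by library, as CPM + 0.1 on a log axis, with circles for the 3 MG libraries and a square, triangle and diamond for MG-LC 1, 2 and 3. P2ry12, Sall1 and Siglech separate fully, whereas Trem2 and C1qb overlap.

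Genes shared by most macrophages did not move together. Of 20 such surface genes, 3 were higher ex vivo (Csf1r, Mertk and Aif1) and 3 in vitro (Cd14, Mrc1 and Msr1), and without MG-LC 1 the counts were 5 and 10. Ptprc, which encodes CD45, was at 393, 347 and 385 CPM ex vivo and 127, 442 and 408 CPM in vitro (log2 fold change 0.20, SE 0.46, adjusted p = 0.733). Cd53 was at 1175, 1127 and 1148 CPM ex vivo and 699, 1020.5 and 1227 CPM in vitro (log2 fold change 0.23, SE 0.30, adjusted p = 0.555). The groups overlapped for both. Mertk, a receptor for dying cells, was at 1061, 891 and 931 CPM ex vivo and 37.4, 140.1 and 194 CPM in vitro (log2 fold change 2.96, SE 0.61, adjusted p = 0.0107). Aif1, the gene of the microglial stain Iba1, was at 385, 425 and 393 CPM ex vivo and 52.7, 60.9 and 130.2 CPM in vitro (log2 fold change 2.30, SE 0.39, adjusted p = 0.00597). Of the 20 genes, 18 were lowest among the cultures in MG-LC 1. Its fibroblast markers were the highest at the same time, and their part in these values was not tested. Among the genes with high levels that were not called were also Actb, Itm2b, Grn, Ctsz, Selenop and Gm26917. Selenop was called higher in vitro without MG-LC 1 (log2 fold change -0.62, adjusted p = 0.0374). The first of the 6, beta-actin, spanned 5740.0, 7239 and 3243 CPM ex vivo and 5476, 7469 and 2816 CPM in vitro.

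The programme of disease-associated microglia (DAM), which was described around amyloid plaques and in ageing, was higher in vitro. Of 29 DAM genes tested, 20 were higher in vitro and 0 ex vivo, against 25.2% and 21.2% of all genes, with a median log2 fold change of -3.25. The count was 9 each without MG 1, 2 or 3 and 25, 20 and 18 without MG-LC 1, 2 or 3. MG-LC 1 was the lowest culture for 22 of the 29.

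Spp1, the secreted phosphoprotein osteopontin (chr5:104435118-104441050, plus strand), rose from 4.10, 7.14 and 2.45 CPM ex vivo to 22232, 8035 and 9317 CPM in vitro (log2 fold change -11.50, SE 1.05, adjusted p = 0.00110). Gpnmb, a lysosomal glycoprotein (chr6:49036546-49070929, plus strand), was at 4.88, 9.62 and 0.213 CPM ex vivo and 5811, 21680.0 and 19157 CPM in vitro (log2 fold change -11.63, SE 1.85, adjusted p = 0.00510). The galectin gene Lgals3 was at 5.96, 4.82 and 1.78 CPM ex vivo and 3199, 9818 and 5516 CPM in vitro (log2 fold change -10.53, SE 0.95, adjusted p = 0.00109). All 3 genes stood below 10 CPM in each sorted library and far above that in each culture. Spp1 was highest in MG-LC 1 and Gpnmb was lowest there.

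Apoe and Lpl, genes of lipid transport in this programme, varied widely between cultures. Apoe, the apolipoprotein of brain lipid particles, was at 229, 184 and 267 CPM ex vivo and 1720.2, 5298 and 36138 CPM in vitro (log2 fold change -5.99, SE 1.35, adjusted p = 0.0148). Lpl, which releases fatty acids from lipoproteins, was at 40.4, 28.7 and 46.8 CPM ex vivo and 348, 8147 and 9619 CPM in vitro (log2 fold change -7.29, SE 1.36, adjusted p = 0.00797). Fabp5, a fatty acid carrier, was at 0.392, 0.422 and 0.638 CPM ex vivo and 594, 734 and 1236 CPM in vitro (log2 fold change -10.78, SE 0.54, adjusted p = 0.000581). Apoe in MG-LC 3 was many times that in MG-LC 1, and Lpl in MG-LC 1 was far below the other two cultures, although each culture exceeded each sorted library.

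Surface receptors and growth factors of the programme followed. Clec7a, the beta-glucan receptor dectin-1, was at 9.61, 8.41 and 11.1 CPM ex vivo and 59.7, 340.2 and 370.3 CPM in vitro (log2 fold change -4.72, SE 0.73, adjusted p = 0.00465). Axl, a receptor for dying cells, was at 20.5, 11.999 and 18.3 CPM ex vivo and 687, 96.0 and 111 CPM in vitro (log2 fold change -4.13, SE 0.90, adjusted p = 0.0129). Every culture exceeded every sorted library for both. Igf1, a growth factor that supports myelination, was at 1.15, 0.573 and 1.36 CPM ex vivo and 160.5, 987 and 1222 CPM in vitro (log2 fold change -9.58, SE 1.05, adjusted p = 0.00184). Itgax, which encodes CD11c, overlapped between the groups through MG-LC 1, at 10.5, 7.72 and 5.93 CPM ex vivo and 5.54, 102 and 122 CPM in vitro (log2 fold change -3.25, SE 1.02, adjusted p = 0.0413).

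The members that were not called included Cst7, Cd9, Ctsd and Csf1. Cst7, a cystatin used as a leading DAM marker, was at 5.89, 5.91 and 4.73 CPM ex vivo and 7.33, 13.1 and 9.25 CPM in vitro (log2 fold change -0.84, SE 0.32, adjusted p = 0.0718). Cd9, a tetraspanin, was at 787, 833 and 869 CPM ex vivo and 783, 1151 and 807 CPM in vitro (log2 fold change -0.14, SE 0.27, adjusted p = 0.685). Csf1, which encodes M-CSF, was at 31.0, 35.7 and 37.3 CPM ex vivo and 126, 15.7 and 21.7 CPM in vitro. Without MG-LC 1, Csf1 was called higher ex vivo (log2 fold change 0.87, adjusted p = 0.0147) and Cst7 higher in vitro (log2 fold change -1.03, adjusted p = 0.0229).

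Outside the DAM list, the widest gaps in vitro belonged to Ms4a7, Adam8, Mmp12, Lgals1, Colec12, Wfdc17, Anxa2 and Clec4d. Ms4a7, a membrane protein known from border-associated macrophages, was at 0.270, 0.241 and 0 CPM ex vivo and 692, 732 and 919 CPM in vitro (log2 fold change -12.13, SE 1.06, adjusted p = 0.00103). Mmp12, the macrophage elastase, was at 3.38, 6.54 and 2.26 CPM ex vivo and 2018, 3491 and 4854 CPM in vitro (log2 fold change -9.73, SE 0.78, adjusted p = 0.000870). Colec12, a scavenger receptor, was at 0, 0 and 0.160 CPM ex vivo and 254, 248 and 420.2 CPM in vitro (log2 fold change -12.39, SE 1.08, adjusted p = 0.00103). Each of these was low in the sorted cells and high in all 3 cultures.

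Lysozyme and ferritin were among the genes with the most reads in vitro, with Ctsb, Gpnmb, Apoe and Spp1. Lyz2, which encodes lysozyme M, was at 216, 225 and 259.6 CPM ex vivo and 16296, 32555 and 24595 CPM in vitro (log2 fold change -6.71, SE 0.76, adjusted p = 0.00199). Fth1, the ferritin heavy chain, was at 1064, 1095 and 1048 CPM ex vivo and 19561, 28879 and 40264 CPM in vitro (log2 fold change -4.79, SE 0.74, adjusted p = 0.00475), with the reserve that processed pseudogenes of Fth1 may take or add reads. The 10 most abundant genes held 10.8% to 11.5% of reads in the sorted libraries and 12.4%, 16.9% and 19.7% in MG-LC 1, 2 and 3.

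**Figure D3:**
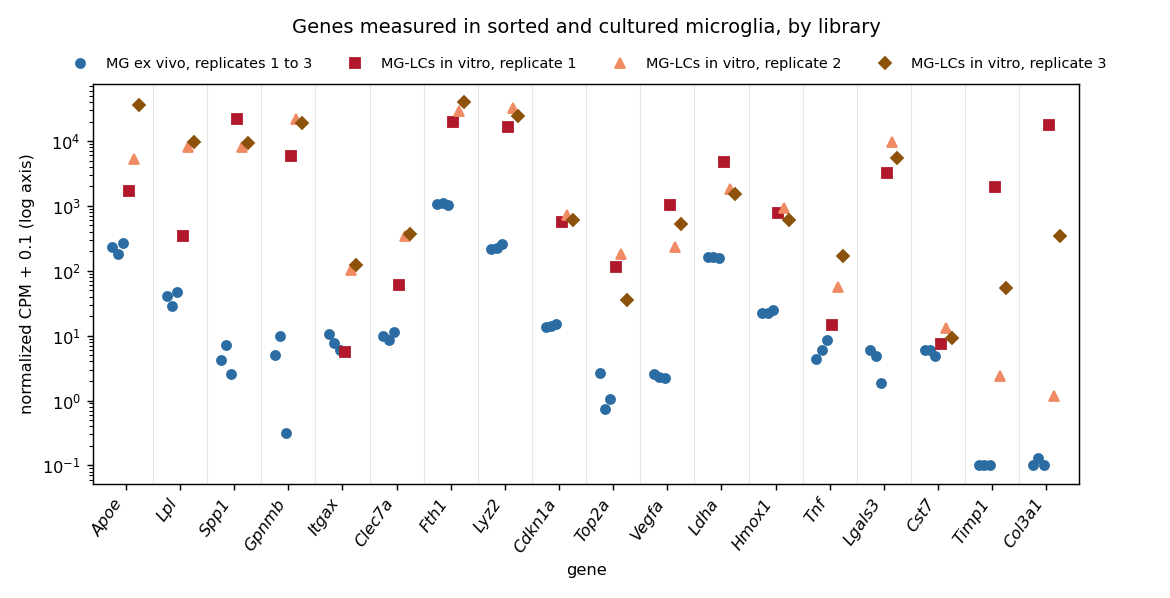
Genes of the disease-associated, growth, hypoxia, inflammatory and matrix groups by library, as CPM + 0.1 on a log axis, with the 3 MG libraries as circles. Spp1, Gpnmb and Lgals3 lie below 10 CPM in sorted cells and at 3199 CPM or more in each culture, whereas Cst7 stays between 4.73 and 13.1 CPM in all 6 libraries.

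The cultures carried the transcripts of dividing cells. Of 32 genes of G2 phase and mitosis tested, 30 were higher in vitro and 0 ex vivo, with a median log2 fold change of -5.55. Of 35 genes of the G1/S transition and DNA replication, 27 were higher in vitro, with a median of -1.88. The mitotic list gave 28, 28 and 27 without MG 1, 2 or 3 and 30, 30 and 32 without MG-LC 1, 2 or 3, and the replication list gave 16, 15 and 18 without MG 1, 2 or 3 and 27, 23 and 31 without MG-LC 1, 2 or 3. Levels were modest throughout, and MG-LC 3 was the lowest culture for 31 of the 32 mitotic genes.

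Mki67, which encodes the proliferation antigen Ki-67, was at 2.04, 0.573 and 1.67 CPM ex vivo and 31.7, 68.3 and 13.9 CPM in vitro (log2 fold change -4.72, SE 0.79, adjusted p = 0.00590). Cdk1, the kinase that drives entry into mitosis, was at 4.12, 3.38 and 2.45 CPM ex vivo and 106, 104 and 34.8 CPM in vitro (log2 fold change -4.62, SE 0.52, adjusted p = 0.00196). Top2a, a topoisomerase that untangles sister chromatids, was at 2.60, 0.633 and 0.957 CPM ex vivo and 115, 184 and 34.8 CPM in vitro (log2 fold change -6.30, SE 0.90, adjusted p = 0.00372). MG-LC 3 was the lowest culture for all 3. Ube2c, a ubiquitin-conjugating enzyme of the anaphase-promoting complex, showed the largest difference in this list, at 0.123, 0.0904 and 0.0798 CPM ex vivo and 74.3, 88.7 and 10.9 CPM in vitro (log2 fold change -9.15, SE 1.03, adjusted p = 0.00196). Sorted cells stayed below 5 CPM for each of these genes. Of the mitotic genes, Bub3 and Mybl2 were not called. The checkpoint gene Bub3 was at 94.5, 104 and 95.5 CPM ex vivo and 169.9, 151 and 112 CPM in vitro.

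Replication genes ranged from large to no differences. Rrm2, a subunit of ribonucleotide reductase, was at 1.94, 1.51 and 0.904 CPM ex vivo and 111, 123 and 21.4 CPM in vitro (log2 fold change -5.87, SE 0.79, adjusted p = 0.00314). The replicative helicase subunit gene Mcm6 was at 22.98, 23.998 and 22.5 CPM ex vivo and 168, 219 and 94.9 CPM in vitro (log2 fold change -2.79, SE 0.33, adjusted p = 0.00212). Sorted microglia held little of the former and a moderate level of the latter. E2f1, a transcription factor of S phase entry, was at 3.65, 1.96 and 2.29 CPM ex vivo and 77.8, 84.9 and 70.5 CPM in vitro (log2 fold change -4.88, SE 0.30, adjusted p = 0.000644). Mcm3 was at 76.1, 79.4 and 79.1 CPM ex vivo and 71.3, 107 and 53.5 CPM in vitro with overlapping groups (log2 fold change 0.02, SE 0.26, adjusted p = 0.961). E2f1 was even across the cultures, whereas Rrm2 was lowest in MG-LC 3. Of the D-type cyclins, Ccnd2 was at 0.932, 0.573 and 1.41 CPM ex vivo and 221, 38.5 and 28.1 CPM in vitro (log2 fold change -6.62, SE 1.05, adjusted p = 0.00512). Ccnd1 was at 74.9, 113 and 88.2 CPM ex vivo and 150.2, 274 and 95.6 CPM in vitro and was not called.

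Some inhibitors of the cycle were higher in vitro as well. Of 13 inhibitors tested, 6 were higher in vitro and 1 ex vivo. Cdkn1a, which encodes the p53-induced inhibitor p21, was at 13.3, 14.2 and 14.9 CPM ex vivo and 561, 721 and 603 CPM in vitro (log2 fold change -5.47, SE 0.23, adjusted p = 0.000581). Cdkn2c, an inhibitor of Cdk4 and Cdk6, was at 6.20, 6.54 and 5.18 CPM ex vivo and 66.8, 113 and 26.01 CPM in vitro (log2 fold change -3.52, SE 0.55, adjusted p = 0.00475). The cyclin-like gene Ccng2 was the exception, at 320.1, 285 and 288 CPM ex vivo and 60.0, 69.3 and 86.9 CPM in vitro (log2 fold change 2.05, SE 0.21, adjusted p = 0.00146). All 3 cultures were close to each other for Cdkn1a.

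Many mitotic genes share short promoter elements, so their promoters are shown. These are the cell cycle homology region (CHR, letters TTTGAA), which binds the DREAM and B-Myb complexes, and the CCAAT box (letters CCAAT). The windows cover 250 bases before to 50 bases after the RefSeq start on GRCm38.p6, and motifs were searched on both strands. Of the 32 mitotic genes, 26 had a promoter in the table, and 19 of these (73.1%) held TTTGAA, against 15.5% of 16337 promoters and 11.7% of the 9798 promoters of tested genes. CCAAT was found in 21 of the 26 (80.8%), against 38.7% and 39.0%. Among replication genes, 4 of 28 promoters (14.3%) held TTTGAA and 16 (57.1%) held CCAAT. A match describes the letters only. Capitals mark TTTGAA or CCAAT or their reverse complements TTCAAA and ATTGG, with a CCAATTGG stretch counted for both strands. Shown are Cdk1 at chr10:69352863-69353162 (minus strand), Plk1, a mitotic kinase, at chr7:122159185-122159484 (plus strand), Ube2c at chr2:164769679-164769978 (plus strand) and Ccnb1, the cyclin partner of Cdk1, at chr13:100786437-100786736 (minus strand).
Cdk1: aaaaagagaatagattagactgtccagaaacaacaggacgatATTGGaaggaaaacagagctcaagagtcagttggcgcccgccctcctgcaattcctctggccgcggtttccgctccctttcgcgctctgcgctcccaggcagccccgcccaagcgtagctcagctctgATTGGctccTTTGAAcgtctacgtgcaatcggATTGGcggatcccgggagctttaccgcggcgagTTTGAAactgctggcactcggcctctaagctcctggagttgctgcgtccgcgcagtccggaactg
Plk1: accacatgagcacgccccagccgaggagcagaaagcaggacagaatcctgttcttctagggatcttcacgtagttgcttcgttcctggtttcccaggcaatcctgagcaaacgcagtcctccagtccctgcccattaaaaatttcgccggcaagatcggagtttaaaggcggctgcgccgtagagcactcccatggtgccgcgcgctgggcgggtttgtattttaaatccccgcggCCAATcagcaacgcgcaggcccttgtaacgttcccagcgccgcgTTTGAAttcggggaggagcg
Ube2c: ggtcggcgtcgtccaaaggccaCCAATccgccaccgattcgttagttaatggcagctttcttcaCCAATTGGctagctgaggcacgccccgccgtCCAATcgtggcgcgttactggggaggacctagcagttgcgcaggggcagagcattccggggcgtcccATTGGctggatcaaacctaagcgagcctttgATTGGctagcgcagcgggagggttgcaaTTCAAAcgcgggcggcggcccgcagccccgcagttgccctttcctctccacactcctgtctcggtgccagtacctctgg
Ccnb1: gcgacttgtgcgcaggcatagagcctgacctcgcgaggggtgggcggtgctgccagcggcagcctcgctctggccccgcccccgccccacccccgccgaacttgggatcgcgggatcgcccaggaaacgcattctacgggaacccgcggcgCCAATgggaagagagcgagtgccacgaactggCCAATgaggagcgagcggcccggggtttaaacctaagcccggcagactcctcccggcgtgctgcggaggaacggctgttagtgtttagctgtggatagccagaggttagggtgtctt

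Cdk1 held 2 TTTGAA and 3 CCAAT matches, Plk1 1 and 1, and Ube2c 1 and 6, whereas Ccnb1 held 2 CCAAT matches and 0 TTTGAA. Plk1 was at 0.956, 1.45 and 0.984 CPM ex vivo and 58.2, 48.9 and 9.21 CPM in vitro (log2 fold change -5.10, SE 0.76, adjusted p = 0.00428). Ccnb1, without TTTGAA in this window, was at 0.662, 0.543 and 0.133 CPM ex vivo and 34.7, 41.8 and 6.05 CPM in vitro (log2 fold change -5.94, SE 0.99, adjusted p = 0.00590), so both promoters belonged to genes that were higher in vitro.

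Targets of the hypoxia-inducible factors (HIF) were mostly higher in the cultured than in the sorted cells. The part of the oxygen level of the culture was not tested. Of 22 targets tested, 16 were higher in vitro and 0 ex vivo, with a median log2 fold change of -3.27. The count was 12 each without MG 1, 2 or 3 and 17, 16 and 16 without MG-LC 1, 2 or 3. Vegfa, the vascular growth factor, was at 2.501, 2.23 and 2.10 CPM ex vivo and 1044, 232 and 519 CPM in vitro (log2 fold change -8.03, SE 0.70, adjusted p = 0.00105). Egln3, an oxygen-sensing hydroxylase of HIF, was at 1.15, 0.392 and 0.585 CPM ex vivo and 181, 30.4 and 119 CPM in vitro (log2 fold change -7.26, SE 0.88, adjusted p = 0.00232). P4ha2, a collagen prolyl hydroxylase, was at 1.25, 1.15 and 1.22 CPM ex vivo and 380.1, 67.2 and 114 CPM in vitro (log2 fold change -7.27, SE 0.81, adjusted p = 0.00193). MG-LC 1 was the highest culture for 13 of the 22 targets, and MG-LC 2 the lowest for 14.

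Further down the list, Bnip3, a receptor for mitophagy, was at 16.5, 17.8 and 21.2 CPM ex vivo and 272, 65.7 and 189 CPM in vitro (log2 fold change -3.25, SE 0.53, adjusted p = 0.00537). Slc16a3, a lactate exporter, was at 60.2, 68.7 and 63.5 CPM ex vivo and 629.8, 234 and 314 CPM in vitro (log2 fold change -2.61, SE 0.40, adjusted p = 0.00471). Ndrg1, a stress gene, had 3 reads in all sorted libraries together and 63.6, 151 and 58.2 CPM in vitro. The vasodilator peptide gene Adm had 1 read ex vivo and 228, 2.34 and 24.7 CPM in vitro, with MG-LC 1 far above the other cultures. Hif1a itself was at 180.3, 159 and 176 CPM ex vivo and 496, 133 and 189 CPM in vitro (log2 fold change -0.67, SE 0.49, adjusted p = 0.299) with overlapping groups. Hif1a in MG-LC 1 was above the sorted cells, and in MG-LC 2 and 3 it was near them.

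The hypoxia response element core, ACGTG, was counted in the same windows. It was present in 11 of 18 promoters of the HIF targets (61.1%) and in 11 of 23 of the glycolysis genes (47.8%), against 21.1% of all promoters and 25.6% of those of tested genes. Capitals mark ACGTG or its reverse complement CACGT. Where the motif and its reverse complement overlap, both were counted. Shown are Bnip3 at chr7:138909457-138909756 (minus strand) and P4ha2 at chr11:54100674-54100973 (plus strand), with 2 matches each. The RefSeq start of P4ha2 lies 829 bases from the GENCODE gene start.
Bnip3: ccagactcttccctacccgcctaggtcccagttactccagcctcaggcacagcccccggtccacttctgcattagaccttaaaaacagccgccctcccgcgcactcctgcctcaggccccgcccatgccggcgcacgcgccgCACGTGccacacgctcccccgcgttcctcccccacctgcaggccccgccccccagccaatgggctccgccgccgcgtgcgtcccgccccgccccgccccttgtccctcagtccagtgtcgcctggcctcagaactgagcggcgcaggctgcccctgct
P4ha2: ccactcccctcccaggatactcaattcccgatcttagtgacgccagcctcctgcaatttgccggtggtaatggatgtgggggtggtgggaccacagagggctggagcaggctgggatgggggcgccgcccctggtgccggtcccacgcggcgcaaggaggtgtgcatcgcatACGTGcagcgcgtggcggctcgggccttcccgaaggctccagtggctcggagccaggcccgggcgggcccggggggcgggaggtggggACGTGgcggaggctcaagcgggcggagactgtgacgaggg

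Most genes of glycolysis were higher in vitro, but isoforms of the same enzyme could go opposite ways. Of 24 genes, 17 were higher in vitro and 4 ex vivo (2 each for the latter without MG 1, 2 or 3). Pkm, the pyruvate kinase of macrophages, was at 209.8, 205 and 207 CPM ex vivo and 3379.8, 2536 and 2438 CPM in vitro (log2 fold change -3.75, SE 0.32, adjusted p = 0.00102). Ldha, the lactate dehydrogenase subunit that favours lactate, was at 164, 166 and 157 CPM ex vivo and 4783, 1814 and 1541 CPM in vitro (log2 fold change -4.07, SE 0.56, adjusted p = 0.00340). Ldhb, the subunit that favours pyruvate, was at 316, 327 and 345 CPM ex vivo and 29.5, 21.5 and 99.0 CPM in vitro (log2 fold change 2.72, SE 0.61, adjusted p = 0.0143). No culture overlapped the sorted libraries for these 3 genes. Of the hexokinases, which start glycolysis, Hk1 was at 53.6, 53.5 and 59.6 CPM ex vivo and 250.2, 151 and 130.5 CPM in vitro (log2 fold change -1.67, SE 0.28, adjusted p = 0.00579). Hk2 was at 154, 195 and 173 CPM ex vivo and 53.0, 30.1 and 65.9 CPM in vitro (log2 fold change 1.81, SE 0.31, adjusted p = 0.00637), in the opposite direction. The glucose transporter Slc2a1 was at 74.8, 77.7 and 56.7 CPM ex vivo and 511, 188 and 239 CPM in vitro (log2 fold change -2.17, SE 0.42, adjusted p = 0.00894), in contrast to the fructose transporter Slc2a5 described above. Levels of Gapdh and Pgk1 were also higher in vitro, but processed pseudogenes make their counts uncertain.

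Nuclear genes of the respiratory chain were higher in vitro in nearly all of their complexes. Of 79 subunits tested, 71 were higher in vitro and 0 ex vivo, with a median log2 fold change of -1.56. Complex I contributed 35 of 37, complexes II and III 11 of 14, complex IV 11 of 13 and ATP synthase 14 of 15. The total was 56, 61 and 60 without MG 1, 2 or 3 and 73, 68 and 71 without MG-LC 1, 2 or 3. Ndufa2 of complex I was at 35.4, 37.8 and 33.5 CPM ex vivo and 174, 187 and 149.7 CPM in vitro (log2 fold change -2.26, SE 0.16, adjusted p = 0.000784). Cox6c of complex IV was at 33.6, 37.8 and 32.0 CPM ex vivo and 173, 168 and 157 CPM in vitro (log2 fold change -2.27, SE 0.15, adjusted p = 0.000672). Atp5b of ATP synthase was at 418, 453 and 445 CPM ex vivo and 1306, 1024 and 709 CPM in vitro (log2 fold change -1.21, SE 0.30, adjusted p = 0.0192). MG-LC 3 was the lowest culture for 55 of the 79 subunits and still above the sorted cells for these 3.

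Genes encoded in mitochondrial DNA did not follow within the test. Of 8 tested, 0 were called, with a median log2 fold change of -0.89, and MG-LC 1 was the lowest culture for all 8. At an unadjusted p under 0.05 there were 2, mt-Nd3 and mt-Co1, and limma-voom and DESeq2 called 0 as well. Without MG-LC 1, all 8 were called higher in vitro, with a median of -1.27. The complex III gene mt-Cytb was at 307, 342 and 343 CPM ex vivo and 317, 559.6 and 813 CPM in vitro. The complex IV gene mt-Co1 was at 158, 163 and 152 CPM ex vivo and 197, 241 and 2106 CPM in vitro, highest in MG-LC 3. These transcripts made up 0.139% to 0.161% of reads ex vivo and 0.212%, 0.307% and 0.781% in MG-LC 1, 2 and 3. Nuclear copies of mitochondrial sequence may share reads with these genes.

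Cytosolic ribosomal protein genes were likewise higher in vitro, at 58 of 80 against 3 higher ex vivo, with a median log2 fold change of -1.92. MG-LC 1 held the highest culture level for 72 of the 80. Rps19, of the small subunit, was at 20.6, 21.6 and 19.2 CPM ex vivo and 185, 139.7 and 119.6 CPM in vitro (log2 fold change -2.85, SE 0.21, adjusted p = 0.000798). Rpl32, of the large subunit, was at 44.2, 44.2 and 44.8 CPM ex vivo and 404, 357 and 274 CPM in vitro (log2 fold change -2.96, SE 0.21, adjusted p = 0.000786). Rpl10a ran the other way, at 40.0, 33.4 and 42.2 CPM ex vivo and 12.01, 13.2 and 17.0 CPM in vitro (log2 fold change 1.46, SE 0.21, adjusted p = 0.00407). The many pseudogenes of this family make single members uncertain. Leaving out MG 1, 2 or 3 brought the count ex vivo to 1.

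Lysosomal genes were called in part. Of 84 tested, 26 (30.95%) were higher in vitro and 6 (7.14%) ex vivo, against 25.2% and 21.2% of all genes. Without MG-LC 1, the counts were 53 and 10. Leaving out MG 1, 2 or 3 gave 19, 21 and 21 higher in vitro. The proton pump contributed most, with 12 of 19 V-ATPase genes higher in vitro and a median log2 fold change of -1.21. Of 44 hydrolases, 10 (22.7%) were higher in vitro and 3 (6.82%) ex vivo, with a median of -0.26. The count in vitro was 5, 6 and 6 without MG 1, 2 or 3 and 24, 10 and 9 without MG-LC 1, 2 or 3. Among the cultures, 35 of the 44 hydrolases were lowest in MG-LC 1.

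Ctsb, the cysteine protease cathepsin B, was at 3526, 3565 and 3794 CPM ex vivo and 11572, 29694 and 32393 CPM in vitro (log2 fold change -2.76, SE 0.72, adjusted p = 0.0229). Lipa, the lysosomal acid lipase, was at 176, 191 and 183 CPM ex vivo and 596, 2717 and 2319 CPM in vitro (log2 fold change -3.36, SE 0.61, adjusted p = 0.00736). All cultures exceeded the sorted libraries for both. Gla, which splits globotriaosylceramide, was at 4.68, 3.29 and 4.87 CPM ex vivo and 169, 229 and 181 CPM in vitro (log2 fold change -5.49, SE 0.26, adjusted p = 0.000581), with cultures within a narrow band. Ctsd, an aspartic protease, was not called, at 17861, 18556 and 17940.0 CPM ex vivo and 13556, 36118 and 39210.0 CPM in vitro (log2 fold change -0.71, SE 0.79, adjusted p = 0.478), but was called higher in vitro without MG-LC 1 (log2 fold change -1.07, adjusted p = 0.00956). Ctsf, a less common cathepsin, was lower in vitro, at 433, 435 and 452 CPM ex vivo and 39.0, 74.8 and 203 CPM in vitro (log2 fold change 2.06, SE 0.60, adjusted p = 0.0325).

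Within the proton pump the subunits did not all move one way. Atp6v1a, the catalytic subunit, was at 74.1, 74.0 and 75.3 CPM ex vivo and 298, 992 and 745 CPM in vitro (log2 fold change -3.19, SE 0.47, adjusted p = 0.00407). Atp6v0d2, a subunit of osteoclasts and activated macrophages, was at 0.515, 0.844 and 0 CPM ex vivo and 55.3, 143 and 362 CPM in vitro (log2 fold change -8.69, SE 1.40, adjusted p = 0.00533). Both were lowest among the cultures in MG-LC 1. Atp6v0a2 was lower in vitro, at 339.7, 316 and 315 CPM ex vivo and 88.9, 66.7 and 56.9 CPM in vitro (log2 fold change 2.19, SE 0.22, adjusted p = 0.00153). Of the regulators of lysosomal genes, Tfe3 was at 279, 299 and 295 CPM ex vivo and 83.7, 144 and 123 CPM in vitro (log2 fold change 1.32, SE 0.24, adjusted p = 0.00763). Tfeb was at 77.0, 81.9 and 73.7 CPM ex vivo and 16.5, 63.1 and 45.5 CPM in vitro and was not called, but was without MG-LC 1 (log2 fold change 0.50, adjusted p = 0.0441). The lysosomal calcium channel gene Mcoln3 had 3 reads ex vivo and 32.8, 83.7 and 26.5 CPM in vitro.

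Cholesterol synthesis was higher in vitro along most of the pathway. Of 23 genes, 19 were higher in vitro and 0 ex vivo, with a median log2 fold change of -1.71. The counts were 13, 14 and 13 without MG 1, 2 or 3 and 20, 17 and 20 without MG-LC 1, 2 or 3. Sqle, which epoxidises squalene, was at 3.09, 2.65 and 3.51 CPM ex vivo and 112, 117 and 35.8 CPM in vitro (log2 fold change -4.84, SE 0.52, adjusted p = 0.00173). Hmgcs1, at the entry of the pathway, was at 34.4, 26.4 and 31.5 CPM ex vivo and 89.6, 102 and 88.8 CPM in vitro (log2 fold change -1.60, SE 0.16, adjusted p = 0.00150). Fdps, Tm7sf2, Ebp and Dhcr7 were not called, although Dhcr7 was called higher in vitro without MG-LC 1 (adjusted p = 0.00338). MG-LC 3 was the lowest culture for 16 of the 23.

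Genes of lipid uptake and storage were among those higher in vitro. Of 25 such genes, including targets of the liver X receptor (LXR), 14 were higher in vitro and 2 ex vivo (9, 9 and 8 in vitro without MG 1, 2 or 3), with a median log2 fold change of -2.05. Plin2, which coats lipid droplets, was at 33.2, 34.6 and 32.4 CPM ex vivo and 809, 1009.7 and 1183 CPM in vitro (log2 fold change -4.90, SE 0.27, adjusted p = 0.000594). Cd36, a fatty acid and lipoprotein receptor, was at 0.196, 0.663 and 0.425 CPM ex vivo and 259, 666 and 298 CPM in vitro (log2 fold change -9.90, SE 0.75, adjusted p = 0.000804). Pltp, a phospholipid transfer protein, was at 1.13, 1.57 and 2.05 CPM ex vivo and 558, 676 and 1242 CPM in vitro (log2 fold change -9.03, SE 0.55, adjusted p = 0.000638). Pparg, a lipid-sensing nuclear receptor, had no read ex vivo and 4.58, 41.9 and 34.0 CPM in vitro, at least 330.1-fold higher. Of the LXR targets, the exporter gene Abca1 was at 433, 341 and 375 CPM ex vivo and 220.1, 154 and 869 CPM in vitro (log2 fold change -0.11, SE 0.65, adjusted p = 0.896). Mylip, a ubiquitin ligase gene, was at 349.5, 382 and 354 CPM ex vivo and 19.8, 34.2 and 95.4 CPM in vitro (log2 fold change 2.86, SE 0.60, adjusted p = 0.0113). MG-LC 3 alone stood above the sorted cells for Abca1.

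Complement genes other than C1q were partly higher in vitro. Of 15 components and receptors tested, 7 were higher in vitro and 1 ex vivo (4 each in vitro without MG 1, 2 or 3). C3, the central component, was at 0.736, 1.27 and 1.28 CPM ex vivo and 155, 17.3 and 21.7 CPM in vitro (log2 fold change -5.89, SE 1.07, adjusted p = 0.00746). Cfp, which encodes properdin, was at 0.883, 1.21 and 1.04 CPM ex vivo and 737, 622 and 150.3 CPM in vitro (log2 fold change -8.91, SE 0.79, adjusted p = 0.00106). Cfp was lowest in MG-LC 3 and C3 highest in MG-LC 1. Of the anaphylatoxin receptors, C3ar1 was at 428, 420.0 and 418 CPM ex vivo and 537, 1896 and 2908 CPM in vitro (log2 fold change -2.08, SE 0.61, adjusted p = 0.0334). C5ar1 was at 215, 266 and 236 CPM ex vivo and 199, 1298 and 1043 CPM in vitro (log2 fold change -1.82, SE 0.65, adjusted p = 0.0603). C5ar2 was at 75.3, 85.8 and 63.1 CPM ex vivo and 2.96, 11.5 and 19.7 CPM in vitro (log2 fold change 2.71, SE 0.65, adjusted p = 0.0174). Without MG-LC 1, C5ar1 was called higher in vitro (log2 fold change -2.30, adjusted p = 0.000332).

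Class II antigen presentation divided between the classical molecules and their editors. Of 10 genes tested, 5 were higher ex vivo and 4 in vitro (2 ex vivo without MG 1, 2 or 3 and 3 without MG-LC 2). The peptide-presenting chain H2-Aa was at 0.613, 0.693 and 0.266 CPM ex vivo and 17.9, 14.6 and 40.2 CPM in vitro (log2 fold change -5.52, SE 0.63, adjusted p = 0.00202). Its partner H2-Ab1 was at 7.04, 7.81 and 9.57 CPM ex vivo and 62.5, 37.4 and 164 CPM in vitro (log2 fold change -3.43, SE 0.58, adjusted p = 0.00614). Cd74, the invariant chain, was at 26.2, 22.5 and 28.5 CPM ex vivo and 63.0, 89.8 and 269 CPM in vitro (log2 fold change -2.45, SE 0.57, adjusted p = 0.0158). H2-Eb1 was called as well, so that all 4 genes higher in vitro belonged to the presenting complex. H2-DMa, which loads peptides, was at 199, 207 and 196 CPM ex vivo and 21.7, 32.1 and 37.5 CPM in vitro (log2 fold change 2.72, SE 0.24, adjusted p = 0.00106). H2-Oa, which restrains loading, was at 25.5, 26.7 and 31.1 CPM ex vivo and 0.0599, 0.571 and 0.716 CPM in vitro (log2 fold change 5.94, SE 0.81, adjusted p = 0.00329). Ciita, the master regulator of the classical genes, stayed below 2 CPM in all 6 libraries. MG-LC 3 held the most H2-Ab1 and Cd74 of the cultures.

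Class I genes were higher in vitro for 8 of 15 and ex vivo for 1, and for 2 and 0 without MG 1, 2 or 3. H2-D1 was at 671, 652 and 729.9 CPM ex vivo and 5228, 5190.2 and 4005 CPM in vitro (log2 fold change -2.81, SE 0.36, adjusted p = 0.00272). B2m, the shared light chain, was at 1821, 1819 and 1712 CPM ex vivo and 4389.6, 3882 and 3038 CPM in vitro (log2 fold change -1.08, SE 0.35, adjusted p = 0.0447). The peptide transporter Tap2 was higher ex vivo, at 127, 142 and 129 CPM ex vivo and 79.9, 88.5 and 97.6 CPM in vitro (log2 fold change 0.58, SE 0.15, adjusted p = 0.0240). H2-Q6 and H2-Q7, near-identical copies that may share reads, were each highest in MG-LC 1, at 169, 9.59 and 4.04 and 234, 4.34 and 11.3 CPM in vitro.

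Interferon-stimulated genes were higher in vitro, most of all in MG-LC 1. Of 30 targets, 16 were higher in vitro and 0 ex vivo, with a median log2 fold change of -3.26, and MG-LC 1 was the highest culture for 28. Without it, 16 were higher in vitro and 2 ex vivo, with a median of -1.52. The count in vitro was 8, 7 and 7 without MG 1, 2 or 3 and 16, 17 and 21 without MG-LC 1, 2 or 3, and limma-voom gave 9. The median log2 ratio to the mean of the sorted cells was 3.71 in MG-LC 1, 1.26 in MG-LC 2 and 0.88 in MG-LC 3. Fibroblast markers were also highest in MG-LC 1, and their part in these values was not tested.

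Isg15, a ubiquitin-like protein, was at 4.95, 3.68 and 4.81 CPM ex vivo and 314, 20.4 and 17.1 CPM in vitro (log2 fold change -4.71, SE 1.29, adjusted p = 0.0272). Irf7, a transcription factor of the interferon response, was at 14.1, 14.1 and 14.9 CPM ex vivo and 645, 60.8 and 24.8 CPM in vitro (log2 fold change -4.08, SE 1.25, adjusted p = 0.0380). MG-LC 1 lay far above the other cultures for both. Ifitm3, an antiviral membrane protein, was at 11.6, 8.29 and 8.56 CPM ex vivo and 2547, 822 and 376 CPM in vitro (log2 fold change -7.04, SE 0.88, adjusted p = 0.00253). Ifi204, a DNA sensor, was at 9.56, 8.14 and 7.26 CPM ex vivo and 121, 101 and 88.5 CPM in vitro (log2 fold change -3.64, SE 0.21, adjusted p = 0.000594), and here all 3 cultures exceeded each sorted library by a wide margin. Not all members behaved so. The antiviral gene Mx2 was at 9.54, 8.29 and 8.27 CPM ex vivo and 18.2, 1.97 and 3.26 CPM in vitro and was not called. Without MG-LC 1, Mx2 was called higher ex vivo (log2 fold change 1.72, adjusted p = 0.00955). Ifnb1, which encodes interferon beta, had 0 reads in the sorted libraries and 0.120, 0 and 24.4 CPM in vitro, so that it was carried by MG-LC 3 and not by the library with the most interferon targets.

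Chemokine ligands were higher in vitro in most cases. Of 19 ligands tested, 14 were higher in vitro and 1 ex vivo (5 and 0 without MG 1, 2 or 3), with a median log2 fold change of -4.17. Cxcl2, which attracts neutrophils, was at 0.0245, 0.0904 and 0 CPM ex vivo and 172, 114 and 369 CPM in vitro (log2 fold change -12.42, SE 0.96, adjusted p = 0.000809). Pf4, platelet factor 4, was at 0.368, 0.422 and 0.399 CPM ex vivo and 328, 105 and 82.6 CPM in vitro (log2 fold change -8.75, SE 0.75, adjusted p = 0.00100). Both were below 1 CPM in sorted cells. Ccl4, a chemokine of activated macrophages, was at 36.3, 26.6 and 41.7 CPM ex vivo and 99.2, 289.8 and 927 CPM in vitro (log2 fold change -3.65, SE 0.83, adjusted p = 0.0149). Ccl2, which attracts monocytes, was at 7.11, 7.54 and 14.2 CPM ex vivo and 741, 144 and 31.8 CPM in vitro (log2 fold change -4.99, SE 1.20, adjusted p = 0.0180). The order of the cultures was opposite for these 2 ligands, with MG-LC 3 highest for Ccl4 and MG-LC 1 for Ccl2.

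Several ligands were found mostly in MG-LC 1. Cxcl5 had no read ex vivo and 943, 0.685 and 14.7 CPM in vitro, and Cxcl3 had no read ex vivo and 80.4, 0.913 and 0.846 CPM. The test called neither (adjusted p = 0.0537 and 0.0528), and without MG-LC 1 it called both (adjusted p = 0.0262 and 0.00814). Ccl5 was at 0.515, 0.754 and 0.239 CPM ex vivo and 20.7, 0.970 and 2.83 CPM in vitro and lost its call without MG-LC 1 (adjusted p = 0.0710). Ccl24, an eosinophil attractant, was the only ligand called higher ex vivo, at 3.87, 5.46 and 4.998 CPM ex vivo and 0, 0.628 and 0.163 CPM in vitro (log2 fold change 4.15, SE 1.22, adjusted p = 0.0336).

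Of 11 chemokine receptors, 3 were higher ex vivo and 3 in vitro, and 2 and 1 without MG 1, 2 or 3. Cxcr4, the receptor for Cxcl12, was at 0.0981, 0 and 0.106 CPM ex vivo and 11.1, 35.4 and 48.5 CPM in vitro (log2 fold change -8.74, SE 1.02, adjusted p = 0.00217), in contrast to Cx3cr1. Ccr6 was at 2.77, 3.17 and 2.87 CPM ex vivo and had 1 read in all cultures together.

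Cytokine genes with inflammatory roles did not move as a block. Of 19 tested, 11 were higher in vitro and 3 ex vivo (5 and 0 without MG 1, 2 or 3). Tnf was at 4.22, 5.85 and 8.48 CPM ex vivo and 14.7, 56.5 and 171 CPM in vitro (log2 fold change -3.71, SE 0.90, adjusted p = 0.0184). Il1b was at 2.38, 2.26 and 3.11 CPM ex vivo and 65.8, 17.2 and 222 CPM in vitro (log2 fold change -5.29, SE 0.98, adjusted p = 0.00790), both highest in MG-LC 3. Il1rn, the antagonist of IL-1 signalling, was at 1.15, 0.633 and 0.930 CPM ex vivo and 106, 14.9 and 11.6 CPM in vitro (log2 fold change -5.59, SE 1.06, adjusted p = 0.00843). The anti-inflammatory Il10, with 1 read ex vivo, was at 0.0245, 0 and 0 CPM ex vivo and 1.497, 11.4 and 3.35 CPM in vitro. MG-LC 1 was highest for Il1rn and MG-LC 2 for Il10. Osm, which encodes oncostatin M, was at 25.2, 24.8 and 31.5 CPM ex vivo and 106, 173 and 171 CPM in vitro (log2 fold change -2.47, SE 0.25, adjusted p = 0.00150). All cultures exceeded the sorted libraries. Il1a was at 129, 141 and 142 CPM ex vivo and 23.6, 13.6 and 94.0 CPM in vitro (log2 fold change 1.65, SE 0.70, adjusted p = 0.0959), the groups not overlapping. Il6 was at 9.54, 9.86 and 10.4 CPM ex vivo and 90.5, 0.228 and 3.39 CPM in vitro, where MG-LC 1 was the highest library and MG-LC 2 the lowest. Il33, an alarmin of stromal cells and glia, was at 1038, 0.542 and 14.6 CPM in vitro against at most 0.160 CPM ex vivo and was carried by MG-LC 1.

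Of 7 genes for colony-stimulating factors and their receptors, 2 (28.6%) were higher ex vivo (Csf1r and Csf3r) and 1 (14.3%) in vitro (Csf2rb2). Of them, 0 were called when MG 1, 2 or 3 was left out, and without MG-LC 1 the counts were 4 and 3. Csf3r, the receptor for granulocyte colony-stimulating factor, was at 739, 748 and 770.1 CPM ex vivo and 23.1, 86.2 and 184 CPM in vitro (log2 fold change 2.95, SE 0.72, adjusted p = 0.0186). Il34, the tissue ligand of Csf1r, had no read ex vivo and 6.50, 0 and 0.879 CPM in vitro.

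The TGF-beta pathway, which maintains microglial identity in the brain, differed by level of the pathway. Of 10 receptors, 5 were higher ex vivo and 2 in vitro, with a median log2 fold change of 1.29. Of 18 SMADs, targets and inhibitors, 10 were higher ex vivo and 3 in vitro, with a median of 0.90. Of 11 ligands and activators, 1 was higher ex vivo and 5 in vitro, with a median of -4.41 and of -2.24 without MG-LC 1. The count of these in vitro was 1, 1 and 2 without MG 1, 2 or 3 and 6, 6 and 4 without MG-LC 1, 2 or 3. Over the whole pathway the counts ex vivo were 9, 10 and 10 without MG 1, 2 or 3 and 18, 15 and 15 without MG-LC 1, 2 or 3, and in vitro 5, 4 and 5 without MG 1, 2 or 3 and 11, 12 and 10 without MG-LC 1, 2 or 3.

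Tgfbr1, the type I receptor, was at 2319.9, 1940.0 and 2110.3 CPM ex vivo and 48.7, 249.8 and 185 CPM in vitro (log2 fold change 3.72, SE 0.65, adjusted p = 0.00654). Tgfbr2, the type II receptor, was at 1151, 1008 and 998 CPM ex vivo and 174, 474 and 612 CPM in vitro (log2 fold change 1.33, SE 0.47, adjusted p = 0.0599). Tgfbr2 was called only without MG-LC 1 (log2 fold change 0.94, adjusted p = 0.00737). The accessory receptor Tgfbr3 was at 0.540, 0.0904 and 1.28 CPM ex vivo and 95.4, 1.46 and 4.82 CPM in vitro and was called higher in vitro (log2 fold change -5.72, SE 1.87, adjusted p = 0.0462), but not without MG-LC 1 (adjusted p = 0.115). MG-LC 1 alone carried the high level.

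Downstream, the signal carriers Smad1, Smad3 and Smad5 were lower in vitro, with Smad5 at 63.2, 57.9 and 67.6 CPM ex vivo and 22.2, 14.4 and 19.8 CPM in vitro (log2 fold change 1.74, SE 0.21, adjusted p = 0.00225). Smad7, an inhibitor that the pathway induces, was at 113, 121 and 109 CPM ex vivo and 39.5, 50.6 and 21.9 CPM in vitro (log2 fold change 1.61, SE 0.31, adjusted p = 0.00891). Pmepa1, a further induced inhibitor, was at 413, 478 and 478 CPM ex vivo and 80.4, 4.02 and 6.48 CPM in vitro (log2 fold change 3.91, SE 1.21, adjusted p = 0.0393), with MG-LC 1 the highest culture. Smad2 and Smad4 were not called. The sorted libraries lay above each culture for Smad7 and Pmepa1. Id1, Id2 and Id3, classical targets of bone morphogenetic proteins, were higher in vitro. Id2 was at 37.3, 34.4 and 48.4 CPM ex vivo and 481, 1316 and 945 CPM in vitro (log2 fold change -4.51, SE 0.46, adjusted p = 0.00150). Id3 was at 0.760, 0.392 and 0.638 CPM ex vivo and 504, 1084 and 79.2 CPM in vitro (log2 fold change -9.85, SE 1.21, adjusted p = 0.00244).

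Tgfb1, the ligand that microglia make themselves, was at 262, 278 and 263 CPM ex vivo and 74.9, 237 and 161 CPM in vitro (log2 fold change 0.77, SE 0.41, adjusted p = 0.162). Nrros, which anchors it on microglia, was at 415, 440.4 and 456 CPM ex vivo and 219.8, 719 and 588 CPM in vitro (log2 fold change -0.22, SE 0.44, adjusted p = 0.696), and was called higher in vitro without MG-LC 1 (log2 fold change -0.59, adjusted p = 0.0145). Ltbp2, Lrrc32 and Tgfb3 had no read ex vivo. Ltbp2 was at 506, 5.48 and 50.5 CPM in vitro, Lrrc32 at 176, 1.23 and 7.85 CPM and Tgfb3 at 25.6, 5.14 and 5.99 CPM. Each was highest in MG-LC 1, as were the fibroblast markers, whose part in these values was not tested.

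Toll-like receptors (TLR) lost and gained members. Of 24 sensors and adaptors, 8 were higher ex vivo and 5 in vitro (4 in each direction without MG 1, 2 or 3), with a median log2 fold change of 0.72. Tlr3, a sensor of double-stranded RNA, was at 156, 130.2 and 126 CPM ex vivo and 24.3, 23.3 and 30.4 CPM in vitro (log2 fold change 2.40, SE 0.18, adjusted p = 0.000804). Tlr5, a sensor of flagellin, was at 41.4, 31.1 and 30.2 CPM ex vivo and 1.80, 2.14 and 2.02 CPM in vitro (log2 fold change 4.11, SE 0.25, adjusted p = 0.000638). Tlr12 was at 85.1, 83.8 and 72.2 CPM ex vivo and 0, 0.0856 and 1.17 CPM in vitro (log2 fold change 7.60, SE 1.31, adjusted p = 0.00641). The 3 cultures were close to one another for Tlr3 and Tlr5. Tlr8, a sensor of single-stranded RNA, was at 0.0490, 0 and 0.0798 CPM ex vivo and 31.0, 94.5 and 54.6 CPM in vitro (log2 fold change -10.29, SE 0.84, adjusted p = 0.000909). Tlr4, the endotoxin receptor, was at 166, 168 and 139 CPM ex vivo and 45.5, 142 and 88.4 CPM in vitro and was not called. The C-type lectin Clec4d, which senses mycobacterial lipid, was below 1 CPM in each sorted library and at 246, 295 and 205 CPM in vitro.

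Mertk was lower and Msr1 and Mrc1 were higher in vitro. Of 18 genes of phagocytosis, 9 were higher in vitro and 3 ex vivo (5 and 2 without MG 1, 2 or 3). Msr1, the class A scavenger receptor, was at 1.79, 2.17 and 2.15 CPM ex vivo and 416, 548 and 355 CPM in vitro (log2 fold change -7.75, SE 0.30, adjusted p = 0.000581). Mrc1, the mannose receptor CD206, was at 11.4, 15.1 and 11.3 CPM ex vivo and 98.6, 295 and 339 CPM in vitro (log2 fold change -4.27, SE 0.52, adjusted p = 0.00230). MG-LC 1 was lowest for Mrc1 and MG-LC 3 for Msr1. Mfge8, a bridge to dying cells, was at 26.7, 31.5 and 28.6 CPM ex vivo and 474, 928 and 1296 CPM in vitro (log2 fold change -4.96, SE 0.45, adjusted p = 0.00110). Gas6, the ligand of Axl and Mertk, was at 259.5, 266 and 286 CPM ex vivo and 291, 2624 and 2602 CPM in vitro (log2 fold change -2.76, SE 0.80, adjusted p = 0.0322), with MG-LC 1 near the sorted cells. Lrp1 and Stab1 were not called.

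Fc receptors for IgG were mostly not called, with 1 of 6 (16.7%) higher in vitro and 0 ex vivo (2 in vitro without MG-LC 1). Fcgr4 was at 12.8, 14.3 and 16.0 CPM ex vivo and 90.8, 69.4 and 144 CPM in vitro (log2 fold change -2.82, SE 0.31, adjusted p = 0.00181). Fcgr3 was at 1075, 1213 and 1163 CPM ex vivo and 468, 1196 and 1509 CPM in vitro (log2 fold change 0.12, SE 0.46, adjusted p = 0.839). Siglecs, receptors for sialic acid, were higher ex vivo for 5 of 8 and in vitro for 1. The count ex vivo was 3, 2 and 2 without MG 1, 2 or 3 and 6, 6 and 5 without MG-LC 1, 2 or 3. Siglece was at 158, 163 and 164 CPM ex vivo and 5.21, 4.79 and 1.76 CPM in vitro (log2 fold change 5.36, SE 0.46, adjusted p = 0.00101). Siglec1, the sialoadhesin of tissue macrophages, went the other way and was at 5.37, 2.41 and 2.29 CPM ex vivo and 246, 129 and 148 CPM in vitro (log2 fold change -5.69, SE 0.51, adjusted p = 0.00108).

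Of 18 integrin subunits, 7 were higher in vitro and 3 ex vivo (2 in each direction without MG 1, 2 or 3, and 8 and 6 without MG-LC 1). Itga4 was at 0.809, 0.482 and 0.585 CPM ex vivo and 10.9, 52.2 and 29.6 CPM in vitro (log2 fold change -5.62, SE 0.69, adjusted p = 0.00238). Itga5, of the fibronectin receptor, was at 45.4, 46.9 and 44.1 CPM ex vivo and 465, 159 and 160.1 CPM in vitro (log2 fold change -2.52, SE 0.48, adjusted p = 0.00829). Itga9 was at 187, 177 and 182 CPM ex vivo and 3.29, 37.6 and 41.4 CPM in vitro (log2 fold change 2.73, SE 0.84, adjusted p = 0.0390). Sorted cells were almost without Itga4, and all cultures held it.

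Receptors for purines, by which microglia sense injury, were higher ex vivo for 8 of 15 and in vitro for 5 (4 ex vivo without MG 1, 2 or 3, and 2, 2 and 3 in vitro). P2rx7, a channel gated by adenosine triphosphate, was at 288, 282 and 275 CPM ex vivo and 22.04, 74.0 and 67.4 CPM in vitro (log2 fold change 2.37, SE 0.46, adjusted p = 0.00905). Entpd1, which encodes the ectonucleotidase CD39, was at 842, 912 and 764 CPM ex vivo and 73.3, 176 and 198 CPM in vitro (log2 fold change 2.49, SE 0.41, adjusted p = 0.00579). Both were lowest among the cultures in MG-LC 1. P2rx4 was at 129.6, 129 and 140.2 CPM ex vivo and 240.2, 433 and 713 CPM in vitro (log2 fold change -1.80, SE 0.41, adjusted p = 0.0146). P2ry2 was at 1.37, 0.874 and 1.17 CPM ex vivo and 28.9, 26.5 and 29.4 CPM in vitro (log2 fold change -4.63, SE 0.28, adjusted p = 0.000638), both higher in vitro.

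Of 16 channel genes, 6 were higher ex vivo and 2 in vitro. The count ex vivo was 2 without MG 1, 2 or 3, and the count in vitro was 4 without MG-LC 1. Kcnk6, a potassium leak channel, was at 419, 393 and 346 CPM ex vivo and 11.97, 56.3 and 41.7 CPM in vitro (log2 fold change 3.40, SE 0.57, adjusted p = 0.00609). Trpm2, a cation channel opened by oxidative stress, was at 99.1, 119.8 and 97.7 CPM ex vivo and 5.15, 15.1 and 11.1 CPM in vitro (log2 fold change 3.34, SE 0.41, adjusted p = 0.00246). Kcnn4, a calcium-activated potassium channel, was at 5.91, 7.24 and 5.26 CPM ex vivo and 78.7, 259 and 9.96 CPM in vitro (log2 fold change -4.24, SE 1.10, adjusted p = 0.0228).

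Antioxidant genes controlled by NRF2 were higher in vitro for 11 of 15 and ex vivo for 1, with a median log2 fold change of -2.97. Hmox1, which breaks down haem, was at 22.6, 22.6 and 24.9 CPM ex vivo and 772, 916 and 613 CPM in vitro (log2 fold change -5.04, SE 0.27, adjusted p = 0.000581). Prdx1, a peroxiredoxin, was at 88.1, 86.2 and 98.1 CPM ex vivo and 2478, 2245 and 1459.8 CPM in vitro (log2 fold change -4.50, SE 0.35, adjusted p = 0.000824). Srxn1, which repairs peroxiredoxins, was at 4.86, 6.33 and 6.33 CPM ex vivo and 204, 164 and 146 CPM in vitro (log2 fold change -4.88, SE 0.23, adjusted p = 0.000581). The cultures lay close together for each of these. Nqo1, a quinone reductase, differed between them and was at 0.0736, 0.241 and 0 CPM ex vivo and 401, 6.88 and 18.5 CPM in vitro (log2 fold change -10.41, SE 2.27, adjusted p = 0.0131). Gclc, the catalytic subunit of glutathione synthesis, ran the other way and was at 121, 122 and 126 CPM ex vivo and 49.2, 84.7 and 44.7 CPM in vitro (log2 fold change 1.05, SE 0.27, adjusted p = 0.0223). Nfe2l2, which encodes NRF2, was at 274, 269.7 and 276 CPM ex vivo and 383, 306 and 399 CPM in vitro and was not called.

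Iron genes were higher in vitro for 10 of 14 and ex vivo for 0 (5, 5 and 6 in vitro without MG 1, 2 or 3). Beside Fth1, the transferrin receptor gene Tfrc was at 16.3, 15.9 and 15.3 CPM ex vivo and 123, 89.8 and 71.3 CPM in vitro (log2 fold change -2.58, SE 0.24, adjusted p = 0.00110). Slc48a1, a haem transporter, was at 53.8, 62.1 and 58.8 CPM ex vivo and 350.4, 572 and 325 CPM in vitro (log2 fold change -2.84, SE 0.28, adjusted p = 0.00146). Neither overlapped the sorted libraries. The iron exporter Slc40a1 was at 410.2, 395 and 378 CPM ex vivo and 41.3, 942 and 278 CPM in vitro (log2 fold change -0.09, SE 0.94, adjusted p = 0.940) and differed more between cultures than between groups. Cp, which encodes ceruloplasmin, was at 1.32, 2.32 and 2.499 CPM ex vivo and 845, 1.37 and 35.4 CPM in vitro and was called only with MG-LC 1 (adjusted p = 0.0642 without it).

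Immediate early genes, which respond within minutes to handling, were in most cases higher in vitro than in the sorted cells. Of 29 tested, 18 were higher in vitro and 2 ex vivo, with a median log2 fold change of -2.03, and the count in vitro was 10, 9 and 9 without MG 1, 2 or 3 and 19, 16 and 17 without MG-LC 1, 2 or 3. Fos was at 721, 372 and 566 CPM ex vivo and 584, 986 and 3685 CPM in vitro, with MG-LC 3 highest, and was not called, but was without MG-LC 1 (adjusted p = 0.0272). Jun was at 2716, 2339 and 2899.9 CPM ex vivo and 438, 169.8 and 1266 CPM in vitro without overlap, and was not called either (adjusted p = 0.0578). The number called ex vivo was 6 without MG-LC 3. Atf3, a stress-induced factor, was at 29.0, 28.1 and 31.2 CPM ex vivo and 198, 559.9 and 746 CPM in vitro (log2 fold change -4.09, SE 0.52, adjusted p = 0.00271). Dusp1, a phosphatase of stress kinases, was at 488, 341 and 357 CPM ex vivo and 611, 1466 and 2753 CPM in vitro (log2 fold change -2.03, SE 0.57, adjusted p = 0.0298). Nr4a1, a nuclear receptor, was at 3.09, 1.36 and 3.62 CPM ex vivo and 255, 233 and 162 CPM in vitro (log2 fold change -6.33, SE 0.48, adjusted p = 0.000804). All 3 were higher in vitro, in each culture. Ier5 was higher ex vivo, at 525, 471 and 421 CPM ex vivo and 156, 145 and 206 CPM in vitro (log2 fold change 1.48, SE 0.23, adjusted p = 0.00456).

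Of 14 chaperone genes, 7 were higher in vitro and 3 ex vivo (1, 1 and 2 in vitro and 1 ex vivo without MG 1, 2 or 3). Hspa8, the constitutive chaperone, was at 152, 145 and 117 CPM ex vivo and 336, 335 and 351 CPM in vitro (log2 fold change -1.31, SE 0.19, adjusted p = 0.00372). The heat-inducible Hspa1b, a near-identical copy of Hspa1a, was at 42.8, 72.7 and 60.1 CPM ex vivo and 14.04, 1.14 and 1.37 CPM in vitro (log2 fold change 3.41, SE 1.05, adjusted p = 0.0389).

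The integrated stress response was called in part. Of 21 targets of ATF4, 7 were higher in vitro and 1 ex vivo (3, 3 and 4 in vitro without MG 1, 2 or 3), and without MG-LC 1 the counts were 7 and 5. The highest culture was MG-LC 1 for 19 of the 21. Asns, asparagine synthetase, was at 3.34, 4.61 and 9.57 CPM ex vivo and 163, 61.2 and 39.1 CPM in vitro (log2 fold change -3.91, SE 0.70, adjusted p = 0.00725). Slc7a5, an amino acid transporter, was at 144, 147 and 175 CPM ex vivo and 83.0, 11.8 and 13.9 CPM in vitro and was called higher ex vivo only without MG-LC 1 (log2 fold change 3.58, adjusted p = 0.000140). Of 16 genes of the unfolded protein response, 1 was higher ex vivo and 0 in vitro (DESeq2 1 and 1), with a median of -0.10. Without MG-LC 1, the counts were 2 and 2. Herpud1, an early responder of this programme, was at 263, 268 and 288 CPM ex vivo and 72.7, 66.7 and 39.6 CPM in vitro (log2 fold change 2.19, SE 0.27, adjusted p = 0.00239).

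Matrix proteases and their inhibitors were higher in vitro for 11 of 18 and ex vivo for 1. The count in vitro was 7, 6 and 7 without MG 1, 2 or 3 and 11, 14 and 8 without MG-LC 1, 2 or 3. Adam8, a metalloprotease of activated macrophages, was at 0.981, 1.78 and 2.37 CPM ex vivo and 953, 2856 and 4015 CPM in vitro (log2 fold change -10.57, SE 0.90, adjusted p = 0.000992). Adam10, which sheds membrane proteins, was at 508, 494 and 460.2 CPM ex vivo and 164, 249.98 and 195 CPM in vitro (log2 fold change 1.26, SE 0.23, adjusted p = 0.00736). Timp1, an inhibitor of metalloproteases, had no read ex vivo and 1943, 2.25 and 53.9 CPM in vitro, with most of it in MG-LC 1. Mmp9 had no read ex vivo and 299.7, 0.913 and 4.26 CPM in vitro and was not called (adjusted p = 0.0551), but was called without MG-LC 1 (adjusted p = 0.0125).

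Of 10 genes of osteoclasts and cell fusion, 4 were higher in vitro and 1 ex vivo (2, 3 and 3 in vitro without MG 1, 2 or 3). Ctsk, the bone-degrading cathepsin K, was at 0.540, 1.39 and 0.319 CPM ex vivo and 67.1, 20.5 and 13.1 CPM in vitro (log2 fold change -5.49, SE 0.93, adjusted p = 0.00605). Nfatc1, the regulator of osteoclast formation, was higher ex vivo, at 319, 296 and 275 CPM ex vivo and 43.2, 103 and 71.5 CPM in vitro (log2 fold change 2.03, SE 0.34, adjusted p = 0.00568). Of 8 Ms4a genes tested, 6 were higher in vitro, Ms4a6d among them at 101, 107 and 104 CPM ex vivo and 326, 229 and 442 CPM in vitro (log2 fold change -1.67, SE 0.27, adjusted p = 0.00551).

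Genes used to label macrophage activation did not fall into a single state. Of 14 tested, 6 were higher in vitro and 1 ex vivo (5 and 0 without MG 1, 2 or 3, and 8 and 3 without MG-LC 2). Ptgs1, the constitutive cyclooxygenase, was at 1474, 1429.5 and 1405 CPM ex vivo and 468, 62.6 and 103 CPM in vitro (log2 fold change 2.77, SE 0.79, adjusted p = 0.0311). Ptgs2, the inducible one, was at 0.0245, 0 and 0.133 CPM ex vivo and 2671, 152 and 88.2 CPM in vitro (log2 fold change -14.05, SE 2.30, adjusted p = 0.00551). MG-LC 1 was the highest culture for both. The alternative marker Arg1 was at 0.245, 0.271 and 0.744 CPM ex vivo and 9.70, 0 and 1.46 CPM in vitro and was not called. The classical marker Nos2 was at 0, 0.121 and 0.0798 CPM ex vivo and 576, 0 and 21.03 CPM in vitro, carried by MG-LC 1. Cd274, which encodes the checkpoint ligand PD-L1, was at 14.8, 11.1 and 17.6 CPM ex vivo and 66.2, 46.8 and 77.2 CPM in vitro (log2 fold change -2.13, SE 0.27, adjusted p = 0.00272).

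Of 58 transcription factors of macrophages, 16 (27.6%) were higher ex vivo and 18 (31.0%) in vitro, near the 21.2% and 25.2% of all genes. The count ex vivo was 6, 7 and 7 without MG 1, 2 or 3 and 27, 18 and 14 without MG-LC 1, 2 or 3. Klf12, a repressor gene, was at 15.8, 14.9 and 14.7 CPM ex vivo and 0.659, 0.114 and 0.391 CPM in vitro (log2 fold change 5.27, SE 0.66, adjusted p = 0.00249). Ets1 was at 230.1, 223 and 227 CPM ex vivo and 67.1, 26.2 and 23.3 CPM in vitro (log2 fold change 2.54, SE 0.45, adjusted p = 0.00672). Cebpa, a myeloid regulator, was at 193, 189 and 178 CPM ex vivo and 20.4, 85.8 and 77.2 CPM in vitro (log2 fold change 1.61, SE 0.51, adjusted p = 0.0430). All cultures were below the sorted libraries for these 3 factors. Bhlhe40, a repressor of circadian and immune genes, was at 0.392, 0.573 and 0.239 CPM ex vivo and 162, 178 and 52.6 CPM in vitro (log2 fold change -8.35, SE 0.69, adjusted p = 0.000932). Cebpb, a regulator of inflammatory genes, was at 102, 111 and 98.8 CPM ex vivo and 572, 385 and 331 CPM in vitro (log2 fold change -2.05, SE 0.26, adjusted p = 0.00272). Tfec, a relative of Mitf, was at 0.392, 0.663 and 0.425 CPM ex vivo and 7.01, 15.8 and 10.6 CPM in vitro (log2 fold change -4.49, SE 0.49, adjusted p = 0.00180). Each of these was higher in vitro. Bhlhe41, a paralog of Bhlhe40, was at 85.7, 114 and 129 CPM ex vivo and 20.0, 65.9 and 53.8 CPM in vitro and was called higher ex vivo only without MG-LC 1 (log2 fold change 0.86, adjusted p = 0.0179). Rara, a retinoic acid receptor, had no read ex vivo and 22.9, 16.9 and 9.70 CPM in vitro, at least 203-fold higher, and Ahr, the aryl hydrocarbon receptor, had 1 read ex vivo and 66.7, 9.59 and 19.0 CPM in vitro.

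**Figure D4:**
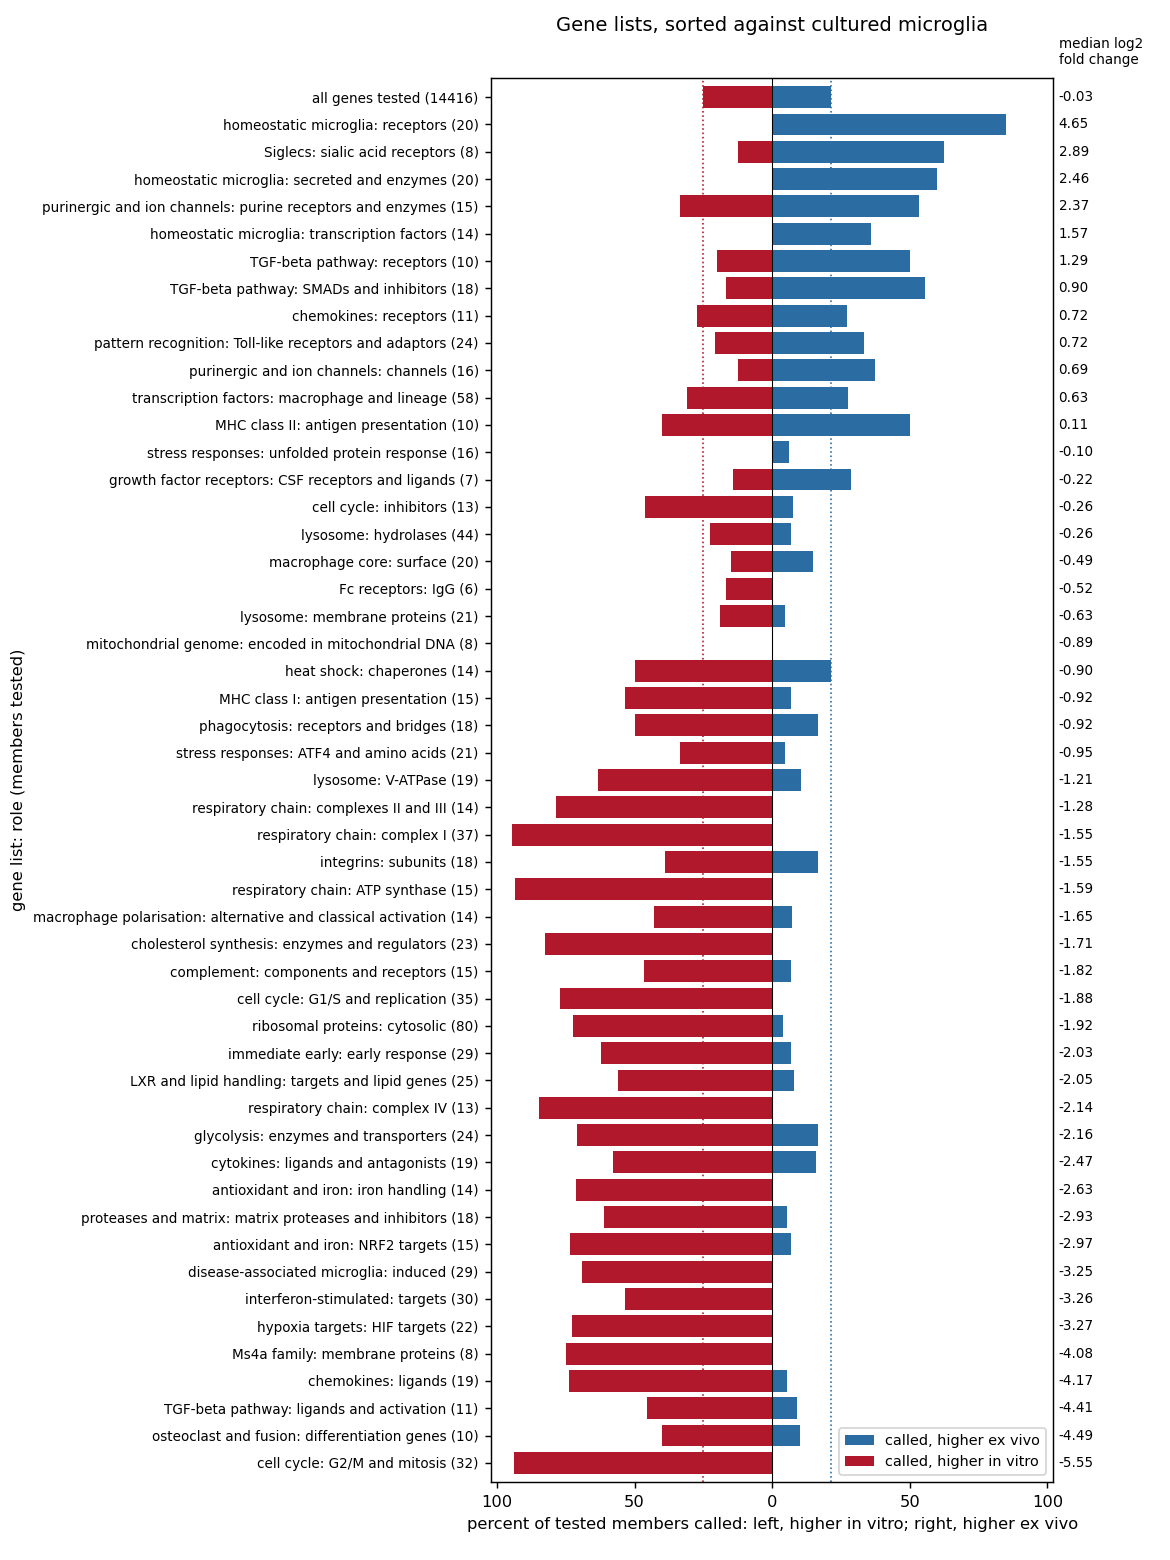
Share of the tested members of each gene list that was called higher in vitro (bars to the left) or higher ex vivo (bars to the right), in percent, with the number of members tested in brackets. Mitotic, respiratory chain and cholesterol genes point left and homeostatic receptors right, while 25.2% and 21.2% of all genes were called.

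Genes carried by a single library were counted with a rule of size: at least 10 CPM there and at least 10 times the level of each of the other 5 libraries. MG-LC 1 carried 448 genes, MG-LC 2 carried 11, MG-LC 3 carried 5 and the sorted libraries 0. Of the 448, 233 could be tested and 135 were called higher in vitro, so a call alone did not show that a gene was shared by the cultures. The genes with the highest levels carried by MG-LC 1 were led by Col3a1, Mmp3 and Dcn. Col3a1, of type III collagen, was at 0, 0.0301 and 0 CPM ex vivo and 17478, 1.08 and 342 CPM in vitro. Dcn, the proteoglycan decorin, was at 0, 0.0904 and 0 CPM ex vivo and 6519, 2.45 and 104 CPM in vitro. Col1a1, of type I collagen, was at 0.0736, 0.0603 and 0.0266 CPM ex vivo and 5931, 2.40 and 392 CPM in vitro. The order MG-LC 1, MG-LC 3, MG-LC 2 was the same in Col3a1, Dcn and Col1a1. Col1a2, Fstl1, Ptgs2, Serpinh1, Timp1 and Lox followed.

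All of these kept that order except Ptgs2, which was lowest in MG-LC 3. Ptgs2 without MG-LC 1 had a log2 fold change of -11.05 (adjusted p = 0.000192). The calls of Col3a1 and Col1a1 also held without MG-LC 1 (adjusted p = 0.0140 and 0.0115), where MG-LC 3 remained far above and MG-LC 2 slightly above the sorted cells. Among the members of the lists, calls higher in vitro that were lost without MG-LC 1 were those of Rpl31, Ccl5, Tgfbr3, Adora2b, Cp, Vldlr, Timp3, Rarb and S100b, and calls higher ex vivo that were lost included those of Pros1 and Lrrc8a.

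The genes carried by MG-LC 2 included genes of macrophages. Gdf3, a growth factor gene, was at 15.6, 179 and 5.86 CPM in the 3 cultures, Cd163, a haemoglobin scavenger receptor, at 1.38, 25.2 and 0.651 CPM and Dcstamp, which is needed for the fusion of macrophages, at 0.898, 16.9 and 1.40 CPM. Kit, the stem cell factor receptor, was at 0, 15.7 and 0 CPM. Dmpk, Dhrs9, Eya1, Shisa9, P2ry1 and Cmah were the others named. MG-LC 3 carried F13a1, a coagulation factor subunit of macrophages, at 15.8, 18.5 and 209 CPM, and Ifnb1, Gm8818, Igf2bp3 and Rab44.

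Markers of further cell types were summed to describe what else the libraries held. Fibroblast markers (above) were called higher in vitro for 5 of 9 tested, and for 0 without MG 1, 2 or 3. Mural cell markers summed to 2.67, 1.21 and 1.51 CPM ex vivo and 322, 6.30 and 36.2 CPM in vitro, and 3 of 4 tested were called higher in vitro (1 without MG 1, 2 or 3). Astrocyte markers summed to 224, 222 and 223 CPM ex vivo and 716, 216 and 104 CPM in vitro, but the sum ex vivo came almost wholly from Slc1a3, a glutamate transporter that microglia also express, at 223, 220.3 and 219 CPM. Gfap, the defining astrocyte filament, was at 0.0245, 0.211 and 0 CPM ex vivo and 2.87, 0.171 and 2.90 CPM in vitro. Of 6 astrocyte markers tested, 4 were called higher in vitro. The part of these cells in other results was not tested.

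Oligodendrocyte markers summed to 203, 194 and 202 CPM ex vivo and 784, 249.8 and 342 CPM in vitro and were led by Mbp and Cnp, with Olig1 and Olig2 at 0 in each sorted library. Neuronal markers summed to 1.52, 2.02 and 1.86 CPM ex vivo and 163, 2.28 and 20.8 CPM in vitro and endothelial markers to 63.8, 53.0 and 51.6 CPM ex vivo and 107, 58.8 and 20.1 CPM in vitro, with the defining tight junction gene Cldn5 at 0 in all 6 libraries. Higher in vitro were 3 of 8 oligodendrocyte and 2 of 5 endothelial markers, with 1 each ex vivo. MG-LC 1 held the highest sum for each type so far and for choroid plexus, monocyte, neutrophil and T cell markers. Choroid plexus markers summed to 23.6, 28.9 and 161 CPM ex vivo and 289, 7.30 and 19.7 CPM in vitro. Ttr, transthyretin, was at 21.4, 26.6 and 146 CPM ex vivo and 0, 0.742 and 0.195 CPM in vitro, highest in MG 3. Other members made up the sum in MG-LC 1.

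Neutrophil markers summed to 0.147, 0.0603 and 0.0798 CPM ex vivo and 95.2, 11.2 and 5.08 CPM in vitro, and both of those tested, S100a8 and Mmp8, were called higher in vitro (0 to 1 without MG 1, 2 or 3). S100a8 was at 7.13, 1.17 and 0.553 CPM in vitro and Camp at 6.74, 0 and 0 CPM, each with no read ex vivo, while the defining markers Ly6g and S100a9 were at 0 in each library. The T cell genes Cd3e and Cd8a were also at 0 in each library. The B cell sum was 662, 645 and 736 CPM ex vivo and 3.23 to 45.3 CPM in vitro, mainly from Ighm at 604, 586 and 674 CPM ex vivo and 0.0898, 44.5 and 10.7 CPM in vitro (log2 fold change 5.08, SE 1.66, adjusted p = 0.0466). Of the 10 B cell markers 3 were tested, and all 3 were called higher ex vivo, with a median log2 fold change of 5.08, while Ms4a1 and Pax5 were at 0 ex vivo. The monocyte sum was 5.52, 6.81 and 6.73 CPM ex vivo and 2176, 59.8 and 308 CPM in vitro and came mostly from Fn1, fibronectin, at 1921, 6.31 and 265 CPM in vitro, whereas Ccr2, the defining monocyte receptor, was at 4.05, 4.52 and 4.68 CPM ex vivo and 5.42, 0.856 and 1.76 CPM in vitro, not called with all libraries and called higher ex vivo without MG-LC 1 (adjusted p = 0.0245).

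Markers of border-associated macrophages, which live in the meninges and around vessels, were higher in vitro for 8 of 9 tested, with sums of 818, 772 and 737 CPM ex vivo and 1604, 3021 and 3382 CPM in vitro. The sum was highest in MG-LC 3 and lowest of the cultures in MG-LC 1. By gene, 4 of the 9 were highest in MG-LC 2, 4 in MG-LC 3 and 1 in MG-LC 1, and the number called was 6 each without MG 1, 2 or 3 and 8 each without MG-LC 1, 2 or 3. Clec12a was at 0.196, 0 and 0 CPM ex vivo and 88.4, 627 and 418 CPM in vitro (log2 fold change -12.33, SE 1.51, adjusted p = 0.00239). Cbr2 was at 0.368, 0.362 and 0.399 CPM ex vivo and 1.41, 13.1 and 1.73 CPM in vitro (log2 fold change -3.84, SE 1.02, adjusted p = 0.0249). The defining members Lyve1, Cd209f and Cd209a were at 0 or below 0.1 CPM in all 6 libraries, and Stab1 was not called. Cells of the brain borders and parenchymal cells that carry these transcripts cannot be told apart here.

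**Figure D5:**
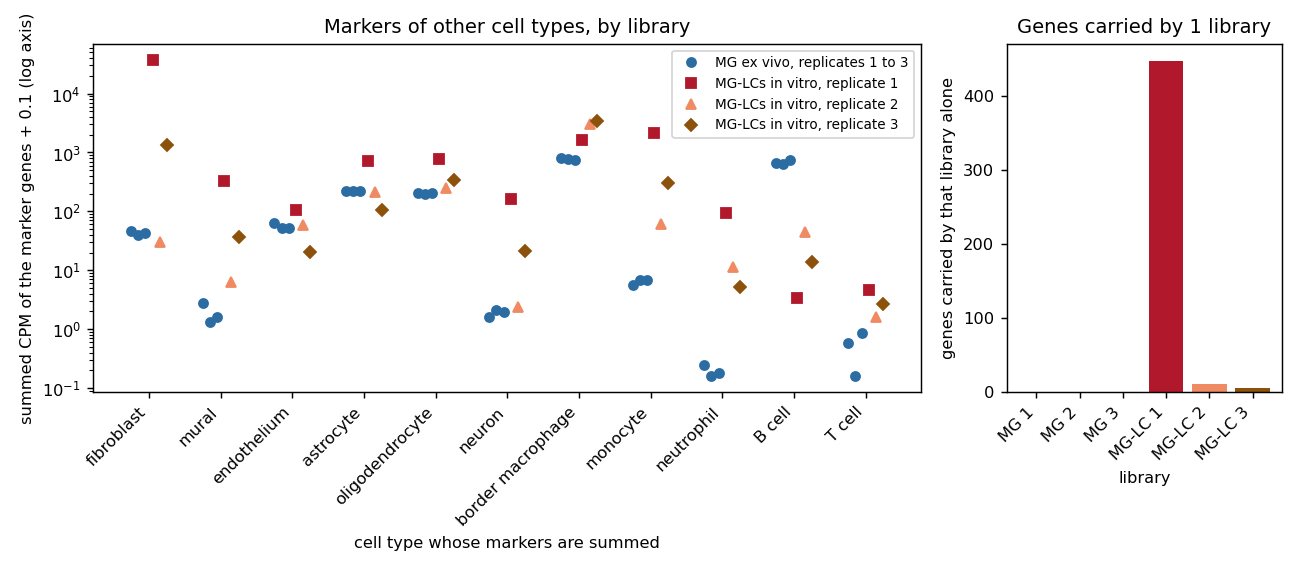
Left, summed CPM + 0.1 of the markers of other cell types by library, on a log axis. Right, number of genes carried by each library alone.

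The last comparison asked which differences between sorted and cultured cells were particular to microglia. For each gene the difference between ex vivo and in vitro in microglia was tested against the mean of the same difference in Kupffer cells (KC), peritoneal macrophages (PM) and alveolar macrophages (AM), which were each sorted and cultured with 3 libraries a group. The alveolar cells were grown with another growth factor, without added glucose and at atmospheric oxygen, so the culture conditions were not the same. Of 17408 genes tested over the 24 libraries, 3452 (19.8%) differed, 1314 (7.55%) with a more positive and 2138 (12.3%) with a more negative difference in microglia. Leaving out MG-LC 1, 2 or 3 gave 2881, 3237 and 3440 genes.

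The smallest p-values among genes with a more positive difference belonged to Bin1, Ivns1abp, Tmem173, Itgb5 and Golm1. Bin1, a membrane-bending protein linked to Alzheimer's disease, was at 929, 949 and 901 CPM ex vivo and 168, 153 and 186 CPM in vitro (log2 fold change 2.45, SE 0.22, adjusted p = 0.00106). Golm1, a Golgi membrane protein, was at 1623, 1556 and 1583 CPM ex vivo and 88.9, 45.2 and 63.4 CPM in vitro (log2 fold change 4.59, SE 0.36, adjusted p = 0.000870). Tmem173, which encodes the sensor STING, was at 703, 758 and 667 CPM ex vivo and 77.4, 79.9 and 48.6 CPM in vitro (log2 fold change 3.37, SE 0.28, adjusted p = 0.000954). For these 3 genes the groups did not overlap, and MG-LC 1 was the highest culture only for Golm1.

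On the other side stood Cd44, Aifm2, Msr1, Sorbs3 and Rbms1. Cd44, the hyaluronan receptor, was at 1.74, 1.06 and 1.20 CPM ex vivo and 283, 432 and 310.0 CPM in vitro (log2 fold change -8.00, SE 0.36, adjusted p = 0.000581), and in the fit of all 24 libraries its log2 fold change was -7.95 in microglia against 0.74 in KC, -0.72 in PM and 1.77 in AM. Aifm2, which encodes the ferroptosis suppressor FSP1, was at 0.441, 0.663 and 0.638 CPM ex vivo and 36.3, 31.2 and 43.2 CPM in vitro (log2 fold change -5.98, SE 0.31, adjusted p = 0.000581), with -5.94 in microglia against -0.79, 0.69 and 0.62. Cd44 was nearly absent from sorted microglia and present in each culture.

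For the 3 defining genes, the difference between ex vivo and in vitro was more positive in microglia than the mean over the other populations. It exceeded that mean by 5.73 for P2ry12 (adjusted p = 2.85e-05), 6.90 for Sall1 (adjusted p = 0.0278) and 9.09 for Tmem119 (adjusted p = 0.000209) in the edgeR fit of 24 libraries. These genes were chosen as microglial markers. A gene that the other sorted cells hold at a low level can fall little there, so the direction was in part set by that choice. Sall1 had log2 fold changes of -1.84, 0.91 and -0.36 in KC, PM and AM. Gpr34 and Fcrls also differed, and Gpr34 was lower in vitro in microglia by a log2 fold change of 4.77 against -2.23 in KC, -3.48 in PM and -0.20 in AM.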

How the data were processed

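RNA from 3 sorted MG and 3 MG-LC samples was extracted with the RNeasy Micro kit, converted to libraries with Nextera XT and sequenced. The authors trimmed the reads with Trimmomatic, aligned them with STAR and deposited raw counts of reads per gene, which carry mouse Ensembl identifiers. The submitters' processing notes name Trimmomatic 0.36 and STAR 2.5.2b. The release of those tools and the genome build are not given alike in the notes and in the study's methods, so coordinates here are those of GRCm38 in GENCODE M21 and no read position was used. Whether counting used strand is not given in the sources used here, so overlapping and antisense genes cannot be told apart.

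Of 45706 genes listed, 45143 matched a symbol in GENCODE M21. The 2 groups were compared by edgeR's quasi-likelihood test (edgeR 4.0.16, R 4.3.3) with TMM normalization, a minimum count of 10 (filterByExpr) and Benjamini-Hochberg adjustment over all genes tested. A gene was called at an adjusted p under 0.05. CPM are counts scaled to the TMM-adjusted library size. A group with no read was set to a floor of 3 reads per library. The difference from Kupffer cells, peritoneal and alveolar macrophages was an interaction term over all 24 libraries. The rule for carried genes is given above. The test was tried on simulated counts with known changes. Promoters came from RefSeq (GRCm38.p6, 300 bases), and 838 of the 1112 protein-coding list members had one. Figures used matplotlib 3.10.9.

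The genes named are P2ry12, Sall1, Tmem119, Fcrls and Gpr34, members of the gene lists, the 12 called genes per direction with the widest gap between groups, the 6 called protein-coding genes per direction with most reads beyond a log2 fold change of 1.5, the 10 highest genes carried by each MG-LC library, the 5 per direction with the smallest interaction p, and the 6 highest genes that were not called and lay within 0.5 on the log2 scale. Some genes that these rules name are not reported here. The genes and lists were chosen with earlier results of these data known. Alternatives were limma-voom (limma 3.58.1), DESeq2 1.42.0, RLE size factors, other filters and thresholds, all 24 libraries, the replicate number as a block and leaving out each library. The labels do not say whether the replicates came from separate mice or cultures, so p-values measure the spread between these samples, which may be technical.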

Additional observations from a re-analysis of the deposited data

Results flagged for a closer look

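For 15 genes the difference between sorted and cultured cells was not the same in microglia as in the mean of Kupffer cells, peritoneal macrophages and alveolar macrophages, each set against its own culture. The test was the interaction term of edgeR's quasi-likelihood test over all 24 libraries, with Benjamini-Hochberg adjustment over 17408 genes, of which 3452 (19.8%) were called. Of these, 10 were named because their interaction p was the smallest, so their values are a description of the extremes. The values below are log2 differences, microglia minus the mean of the other populations.

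Among the genes higher in sorted microglia, the difference was 3.88 for Bin1 (adjusted p = 2.23e-09), 3.47 for Ivns1abp (adjusted p = 1.27e-08), 3.28 for Tmem173 (adjusted p = 1.31e-08), 4.52 for Itgb5 (adjusted p = 1.85e-08) and 3.79 for Golm1 (adjusted p = 4.7e-08). The populations did not share 1 direction for each of these. Bin1 was lower in sorted than in cultured Kupffer cells and alveolar macrophages, with log2 fold changes of -1.45 and -3.42. Itgb5 had a log2 fold change of -6.64 in peritoneal macrophages.

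Among the genes higher in the cultured microglia, the difference was -8.55 for Cd44 (adjusted p = 1.34e-10), -6.11 for Aifm2 (adjusted p = 1.64e-10), -6.29 for Msr1 (adjusted p = 2.34e-10), -5.04 for Sorbs3 (adjusted p = 2.34e-10) and -2.78 for Rbms1 (adjusted p = 2.77e-10). Cd44 had log2 fold changes of 0.74, -0.72 and 1.77 in Kupffer cells, peritoneal and alveolar macrophages. Msr1 was also higher in cultured alveolar macrophages, at -4.52.

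For 5 microglial genes the difference was 5.73 for P2ry12 (adjusted p = 2.85e-05), 6.90 for Sall1 (adjusted p = 0.0278), 9.09 for Tmem119 (adjusted p = 0.000209), 10.7 for Fcrls (adjusted p = 0.000127) and 6.74 for Gpr34 (adjusted p = 0.00235). P2ry12 was higher in the sorted cells of every population, with log2 fold changes of 4.71, 3.11 and 1.91 in Kupffer cells, peritoneal and alveolar macrophages. Fcrls was higher in the cultures of those populations, at -9.32, -3.04 and -11.91. These 5 genes were chosen as microglial markers, and a gene that is low in other sorted cells can fall little there.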

How the results depend on the processing

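The 6696 genes called became 7047 with limma-voom, 8074 with DESeq2, 6761 with RLE size factors, 5672 with no filter, 6195 with a filter of 1 CPM in 3 libraries and 7506 with all 24 libraries in 1 model. The split between directions moved with the tool, from 3063 ex vivo and 3633 in vitro to 3749 and 3298 with limma-voom. Asking also for a log2 fold change beyond 1.5 left 4303 genes, 1941 ex vivo and 2362 in vitro. With 1 library left out at a time, 2928 to 8180 genes were called, 1218 to 3862 ex vivo and 1710 to 4318 in vitro. The low values came from leaving out MG 1, 2 or 3, which leaves 2 sorted libraries. Genes carried by MG-LC 1, 2 and 3 numbered 695, 32 and 14 at 5-fold in place of 10-fold, 227, 3 and 2 at 50 CPM in place of 10 CPM, and 462, 11 and 5 with RLE size factors. Of the named genes and lists, 4 genes that were not called changed direction and passed the threshold when 1 MG-LC library was left out. Csf1 had a log2 fold change of 0.87 (edgeR, adjusted p = 0.0147) and Pdia4 of 0.66 (adjusted p = 0.00687) without MG-LC 1, within ranges over the 6 libraries left out of -1.07 to 0.87 and -0.43 to 0.66. Alox5ap had 0.79 (adjusted p = 0.0241) without MG-LC 2, in a range of -0.38 to 0.79. Abca1 had 1.04 (adjusted p = 0.0239) without MG-LC 3, in a range of -0.50 to 1.04. The cause was not tested. Of the named genes, 238, 233 and 228 lost their call without MG 1, 2 or 3, and 12, 50 and 35 without MG-LC 1, 2 or 3, where 113, 35 and 46 gained one. DESeq2 lost 0 and gained 87 calls, and limma-voom lost 75 and gained 22. Whether the replicate numbers pair the samples is not given in the labels. Same-numbered MG and MG-LC libraries had correlations of deviations of -0.056, 0.061 and 0.066, and not every sample correlated best with its own number. With 3 libraries a group, such values cannot decide whether the samples were paired. With the replicate number as a block, 4752 genes were called, and 92 named genes lost and 7 gained a call. The difference from the other populations was called for 4187 genes by limma-voom against 3452. Depth was similar in all libraries, and its part in these calls was not tested.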
